A study of Mus musculus with 20 samples.

Results

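At day 6 (D6) of neural differentiation, 2 libraries of TKO cells were compared with 2 libraries of WT cells, which are 4 of the 20 libraries of a mouse embryonic stem cell time course. Both genotypes are of ES-E14TG2a, a feeder-independent line of mouse embryonic stem cells. The cells had been kept with serum and leukaemia inhibitory factor on gelatin, and were then plated on laminin in N2B27, a serum-free medium without added signalling factors, in which mouse stem cells turn into neural progenitor cells (NPCs). The TKO D6 and WT D6 groups differ in genotype, share this treatment and day, and hold 2 samples each that the labels call biological replicates; the libraries were chosen by genotype and day alone. The labels do not say which genes TKO refers to or how many clones were used, so 1 TKO line may stand behind both libraries. Polyadenylated RNA was sequenced, and the estimated counts summed to 33195966 and 27445109 in TKO cells, against 31542594 and 29363161 in WT cells. Over the 20 libraries the totals ran from 26015282 to 38074768.

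Levels are given as CPM, counts scaled to a common library size (1e+06) after TMM scaling between libraries. Each gene was tested with the quasi-likelihood test of edgeR, fitted over all 20 libraries, and a gene passed where its adjusted p, by Benjamini and Hochberg over the 18555 genes tested, was under 0.05. Log2 fold changes are TKO over WT, so that positive values are higher in TKO cells. Each is printed with a standard error (SE) derived from the test: the absolute log2 fold change over the square root of the F statistic. This SE is not estimated on its own, and where a group holds few counts it can lie below counting error. "Higher", "lower", "rose" and "fell" are used of genes that passed. Genes that share 10% or more of their 31-mers (stretches of 31 bases) with other genes are called uncertain, because the authors' quantification has to divide such reads between genes. Where both WT libraries held no count, the fold is a lower bound, computed as if the group held 3 counts in all.

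Methylation of cytosine in CG dinucleotides is placed on DNA by the de novo methyltransferases Dnmt3a and Dnmt3b and copied at replication by Dnmt1. In mammalian somatic cells it keeps a set of germ cell genes and many retroelements silent, and it marks 1 parental copy at the control regions of imprinted genes. Mouse stem cells that leave the naive state first pass through a formative state, switch off Pou5f1 and Nanog, switch on Sox1, Pax6 and Nes as neural progenitors, and later give neurons that carry Tubb3 and Dcx.

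The genes that a triple knockout in this setting might concern were read first. Dnmt1, the maintenance methyltransferase, stood at 77.5 and 87.9 CPM in TKO cells, against 374 and 406 CPM in WT cells (log2 fold change -2.24, SE 0.09, adjusted p = 1.50e-12). Dnmt3a, which sets new methylation, stood at 9.21 and 9.33 CPM in TKO cells, against 104 and 108 CPM in WT cells (log2 fold change -3.51, SE 0.08, adjusted p = 1e-15). Dnmt3b, which acts beside it, stood at 18.9 and 19.12 CPM in TKO cells, against 46.6 and 50.3 CPM in WT cells (log2 fold change -1.35, SE 0.13, adjusted p = 3.45e-07, uncertain with 13.5% shared 31-mers). For all of these, both TKO libraries lay below both WT libraries, and RNA of each was still present. The transcript Dnmt1-201 held 1681 and 1568 estimated counts in TKO cells, against 8432 and 7599 in WT cells. Dnmt3a-201 held 180.5 and 100.3 estimated counts in TKO cells, against 852 and 652 in WT cells, and Dnmt3a-218 held 92.4 and 107 in TKO cells, against 1416 and 1448 in WT cells. Dnmt3a-205 held 36.2 and 36.3 estimated counts in TKO cells, against 1096 and 1071 in WT cells. These levels do not show by themselves which part of a gene was altered.

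Dnmt3l, a cofactor of the de novo enzymes without catalytic activity, stood at 5.77 and 3.65 CPM in TKO cells, against 1.67 and 0.893 CPM in WT cells (log2 fold change 1.88, SE 0.36, adjusted p = 0.000416). Tet1, which oxidises methylated cytosine, stood at 75.2 and 62.7 CPM in TKO cells, against 51.8 and 51.6 CPM in WT cells (log2 fold change 0.42, SE 0.08, adjusted p = 0.000587). Both were higher in TKO cells, while Tet3, its relative, was lower at 122.7 and 125 CPM in TKO cells, against 160.4 and 159 CPM in WT cells (log2 fold change -0.37, SE 0.14, adjusted p = 0.0366). Tet2, the other oxidase, did not pass, at 32.7 and 32.9 CPM in TKO cells, against 31.1 and 26.1 CPM in WT cells (log2 fold change 0.20, SE 0.11, adjusted p = 0.159). Of the DNA methylation machinery, 4 of 20 genes tested rose, 8 fell and 8 missed the threshold, with a median log2 fold change of -0.07; of all genes tested, 20.9% were higher and 20.3% lower. The call was lost for Tet3 when any 1 of the 4 libraries was left out (highest adjusted p 0.126).

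Of the 18555 genes tested, 3883 (20.9%) were higher and 3771 (20.3%) lower in TKO cells, 41.3% in all. The changes were unequal in size: 2223 genes (12%) were higher by at least 2-fold and 471 (2.54%) lower by as much, and 693 were higher by at least 8-fold against 44 lower. The median absolute log2 fold change of the genes that passed was 0.63, and the median over all genes tested was -0.003. In 250 of the higher genes both WT libraries held no count, and in 14 of the lower genes both TKO libraries held none. For 7628 of the 7654 genes that passed, the libraries of the groups did not overlap; over all genes tested, with or without a call, 68.2% did not overlap.

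Higher genes lay mostly at low WT levels and lower genes at high ones. Of 1551 genes under 0.1 CPM in WT cells, 615 were higher and 0 lower. Of 3635 genes from 0.1 to 1 CPM, 954 were higher and 86 lower. Of 3494 genes from 1 to 10 CPM, 1068 were higher and 489 lower. Of 7438 genes from 10 to 100 CPM, 1040 were higher and 2290 lower. Of 2437 genes at 100 CPM or more, 206 were higher and 906 lower. The WT level that sorts these genes also enters the fold change, so the bins are a description.

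**Figure D1:**
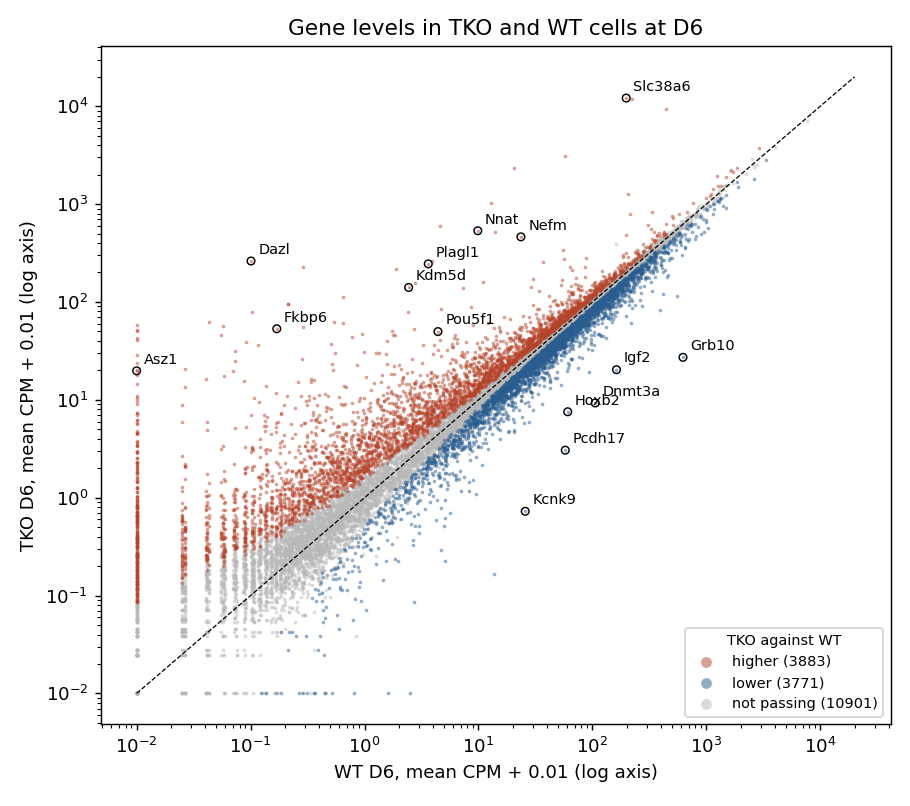
Mean CPM of each gene tested in TKO D6 cells (vertical axis) against WT D6 cells (horizontal axis), both on a log scale with 0.01 CPM added, coloured by whether the gene was higher, lower or did not pass. Genes from the germline such as Dazl stand toward the left, far above the diagonal, and Grb10 and Dnmt3a stand below it.

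By chromosome, the X held 734 genes tested, of which 34.1% were higher and 14.7% lower, and the Y held 22, of which 8 were higher and 0 lower. Among gene types, 3650 of 16832 protein-coding genes were higher and 3691 lower, and 152 of 1265 processed pseudogenes were higher and 41 lower. In a principal component analysis of all 20 libraries the first component took 65.6% of the variance and ordered the WT libraries by day; TKO D6 libraries stood at 44.2 and 48.8 on it, and WT D6 libraries at 62.7 and 64.4. TKO D8 libraries stood at 20.6 and 21.3 on it, below TKO D6 libraries. On the second component (19.12%) TKO D6 libraries stood at 37.3 and 37.9, and WT D6 libraries at -30.1 and -33.4. The root mean square log2 difference of the TKO D6 mean was 1.17 to WT D4, 1.03 to WT D6 and 1.10 to WT D8, and replicates differed by 0.448 in TKO and 0.465 in WT cells. The 10 most abundant genes held 6.92% and 6.77% of the counts in TKO cells, against 4.22% and 3.96% in WT cells.

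Genes of the germline that DNA methylation keeps silent in somatic cells included many of the largest rises. Of these, 32 of 39 genes tested rose, 1 fell and 6 missed the threshold, with a median log2 fold change of 4.57 (4.12 with genes at no count in 1 group set at their bound), against -0.003 over all genes tested. Elmod1, a regulator of small GTPases, was the member that fell, at 0.174 and 0.211 CPM in TKO cells, against 0.848 and 0.430 CPM in WT cells (log2 fold change -1.73, SE 0.56, adjusted p = 0.02). The call was lost for Elmod1 when TKO replicate 1, TKO replicate 2 or WT replicate 1 was left out (highest adjusted p 0.216). Dazl, an RNA-binding protein needed for germ cell development, stood at 232 and 292 CPM in TKO cells, against 0.182 and 0 CPM in WT cells (log2 fold change 11.37, SE 0.29, adjusted p = 3.60e-15). Asz1, a protein of the germ cell granule in which piRNAs are made, stood at 18.2 and 21.3 CPM in TKO cells, against 0 and 0 CPM in WT cells (at least 414-fold higher, adjusted p = 3.22e-11). TKO and WT libraries were far apart for both genes, and the WT libraries held few counts or none.

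Tuba3b, a testis tubulin, stood at 47.4 and 54.7 CPM in TKO cells, against 0 and 0 CPM in WT cells (at least 1069-fold higher, adjusted p = 3.91e-14, uncertain with 42.9% shared 31-mers). Rpl10l, a ribosomal protein gene that takes the place of its X-linked parent in the testis, stood at 10.0 and 10.9 CPM in TKO cells, against 0 and 0 CPM in WT cells (at least 219-fold higher, adjusted p = 8.37e-13, uncertain with 23.4% shared 31-mers). Tex101, a surface glycoprotein of male germ cells, stood at 8.11 and 11.4 CPM in TKO cells, against 0 and 0 CPM in WT cells (at least 203-fold higher, adjusted p = 1.23e-09). WT cells held no count of these in either library. Tktl2, a transketolase-like gene known from testis, stood at 9.85 and 11.9 CPM in TKO cells, against 0 and 0 CPM in WT cells (at least 227-fold higher, adjusted p = 3.31e-12). Otud6a, an X-linked deubiquitinase gene, stood at 6.23 and 6.14 CPM in TKO cells, against 0 and 0 CPM in WT cells (at least 130.4-fold higher, adjusted p = 4.78e-09).

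The promoters of 4 of these genes, and that of the imprinted gene Grb10 described further on, are printed because their CG dinucleotides are the sites at which methylation can act. Each runs from 250 bases before to 50 after a gene start in the RefSeq table of GRCm38.p6, is written 5′ to 3′ on the strand of the gene, and has CG in capitals. The Dazl window is chr17:50293571-50293870 (minus strand, 28 CG), the Asz1 window chr6:18109012-18109311 (minus strand, 17 CG), the Mov10l1 window chr15:88982744-88983043 (plus strand, 20 CG), the Tex101 window chr7:24672001-24672300 (minus strand, 19 CG) and the Grb10 window chr11:12037371-12037670 (minus strand, 45 CG). The table holds a further Grb10 window, not printed, with 9 CG.
Dazl: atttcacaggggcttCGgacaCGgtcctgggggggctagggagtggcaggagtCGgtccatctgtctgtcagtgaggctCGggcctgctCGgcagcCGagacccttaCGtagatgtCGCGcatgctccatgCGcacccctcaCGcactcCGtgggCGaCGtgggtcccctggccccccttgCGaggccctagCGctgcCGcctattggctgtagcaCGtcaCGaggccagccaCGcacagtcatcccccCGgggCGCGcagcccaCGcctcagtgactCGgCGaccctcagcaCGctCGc
Asz1: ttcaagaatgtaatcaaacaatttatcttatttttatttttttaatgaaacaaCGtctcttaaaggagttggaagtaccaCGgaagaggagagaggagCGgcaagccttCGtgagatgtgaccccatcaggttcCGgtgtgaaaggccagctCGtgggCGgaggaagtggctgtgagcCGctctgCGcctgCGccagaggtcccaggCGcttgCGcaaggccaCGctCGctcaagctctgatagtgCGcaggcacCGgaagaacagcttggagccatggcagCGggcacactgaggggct
Mov10l1: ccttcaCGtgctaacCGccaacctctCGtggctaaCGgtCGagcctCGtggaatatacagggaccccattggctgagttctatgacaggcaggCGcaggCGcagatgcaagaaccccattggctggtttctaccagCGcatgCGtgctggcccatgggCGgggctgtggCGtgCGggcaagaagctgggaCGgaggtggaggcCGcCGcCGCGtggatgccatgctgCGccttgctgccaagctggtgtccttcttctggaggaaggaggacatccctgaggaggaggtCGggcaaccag
Tex101: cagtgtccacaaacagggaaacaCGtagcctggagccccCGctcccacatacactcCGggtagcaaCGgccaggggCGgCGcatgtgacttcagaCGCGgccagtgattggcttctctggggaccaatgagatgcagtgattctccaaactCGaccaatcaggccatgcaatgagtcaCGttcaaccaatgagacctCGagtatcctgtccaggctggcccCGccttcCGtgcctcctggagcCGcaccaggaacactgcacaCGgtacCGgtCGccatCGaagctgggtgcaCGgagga
Grb10: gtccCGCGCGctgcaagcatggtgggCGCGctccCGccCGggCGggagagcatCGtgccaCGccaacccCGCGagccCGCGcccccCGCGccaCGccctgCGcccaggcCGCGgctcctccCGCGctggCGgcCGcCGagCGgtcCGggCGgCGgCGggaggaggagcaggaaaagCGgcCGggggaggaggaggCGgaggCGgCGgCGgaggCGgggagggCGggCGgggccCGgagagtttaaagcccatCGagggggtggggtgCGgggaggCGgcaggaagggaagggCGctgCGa
Methylation was not measured here, so these windows show where CG lie and not their state. The window of Mov10l1 holds the E-box CACGTG.

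Of the 39 germline genes, 34 matched the promoter table; their median number of CG per 300 bases was 17, and 91.2% held 10 or more. Over all protein-coding genes tested (13171 of 16385 matched, those of chromosome 18 left out) the median was 18 and 73.4% held 10 or more. Motifs were searched on both strands. The E-box CACGTG was held by 41.2% of the germline promoters and 9.43% of all. The E2F-type motif TTCCCGC was held by 29.4% and 7.65%, the NRF1 motif by 14.7% and 1.73%, and the cyclic AMP element TGACGTCA by 0 and 2.87%. Among all higher genes matched, 8.54% held CACGTG and 65.7% held 10 or more CG. Among those higher by at least 8-fold, 9.73% held CACGTG and 37.4% held 10 or more CG. Among all lower genes matched, the shares were 9.93% and 86.0%. A match is a description of these windows.

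X-linked genes of the cancer-testis type, which are expressed in germ cells, placenta and some tumours, were higher in 28 of 32 cases and lower in 0, with a median log2 fold change of 5.11 (4.92 with bounds). Over all genes tested, 20.9% were higher and 20.3% lower. The list summed to only 9.24 and 9.43 CPM in WT cells, and 13 members held no count in 1 group. A member without counts in WT cells could not be called lower. Members could pass the count filter through TKO libraries, and 25 were tested with the D6 libraries alone. Xlr4b, of the X-linked lymphocyte-regulated family, stood at 28.7 and 28.4 CPM in TKO cells, against 0 and 0 CPM in WT cells (at least 602-fold higher, adjusted p = 2.35e-11, uncertain with 58.2% shared 31-mers). Mageb4, a melanoma antigen family gene, stood at 12.4 and 16.5 CPM in TKO cells, against 0 and 0 CPM in WT cells (at least 300.3-fold higher, adjusted p = 1.01e-09, uncertain with 53.7% shared 31-mers). Rhox2a, a reproductive homeobox gene, stood at 9.50 and 8.70 CPM in TKO cells, against 0 and 0 CPM in WT cells (at least 193-fold higher, adjusted p = 9.24e-09, uncertain with 97.5% shared 31-mers). Rhox9, a homeobox gene of the same cluster, stood at 8.55 and 7.68 CPM in TKO cells, against 0.424 and 0.563 CPM in WT cells (log2 fold change 4.04, SE 0.22, adjusted p = 1.53e-10). Rhox6, its neighbour, stood at 10.2 and 9.40 CPM in TKO cells, against 0.909 and 0.860 CPM in WT cells (log2 fold change 3.47, SE 0.18, adjusted p = 1.11e-10, uncertain with 23.3% shared 31-mers). The members of these families are close copies and most values are uncertain; 10 of 12 members with under 10% of shared 31-mers were higher. Their promoters (29 of 32 matched) had a median of 7 CG, and 27.6% held 10 or more.

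Of the genes of the piRNA pathway, which makes small RNAs that silence transposons in the germline, 18 of 23 genes tested rose, 1 fell and 4 missed the threshold, with a median log2 fold change of 2.39. Mov10l1, the helicase that feeds piRNA precursors into the pathway, stood at 34.1 and 38.8 CPM in TKO cells, against 0.212 and 0 CPM in WT cells (log2 fold change 8.31, SE 0.34, adjusted p = 2.29e-12). Fkbp6, a co-chaperone of piRNA loading, stood at 47.4 and 59.0 CPM in TKO cells, against 0.121 and 0.199 CPM in WT cells (log2 fold change 8.36, SE 0.22, adjusted p = 3.87e-15). Gtsf1, a zinc finger partner of Piwi proteins, stood at 4.35 and 5.30 CPM in TKO cells, against 0 and 0 CPM in WT cells (at least 101-fold higher, adjusted p = 7.91e-10). Piwil2, a Piwi protein itself, stood at 8.98 and 7.47 CPM in TKO cells, against 0.545 and 0.397 CPM in WT cells (log2 fold change 4.11, SE 0.20, adjusted p = 2.58e-11). Ddx4, the Vasa helicase of germ cells, stood at 27.9 and 31.9 CPM in TKO cells, against 1.00 and 1.52 CPM in WT cells (log2 fold change 4.57, SE 0.18, adjusted p = 2.12e-12). TKO libraries lay above WT libraries for each. The member that was lower, Pld6, a mitochondrial phospholipase, stood at 0.869 and 0.947 CPM in TKO cells, against 1.70 and 1.46 CPM in WT cells, and the call was lost for Pld6 when WT replicate 1 was left out (highest adjusted p 0.0555). Tdrd1, a Tudor protein of the pathway, did not pass, at 1.10 and 1.47 CPM in TKO cells, against 1.18 and 1.52 CPM in WT cells (log2 fold change -0.08, SE 0.35, adjusted p = 0.887).

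Of the genes of meiotic chromosomes, 18 of 28 genes tested rose, 2 fell and 8 missed the threshold, with a median log2 fold change of 1.66. Syce1, a central element protein of the synaptonemal complex, stood at 13.2 and 17.3 CPM in TKO cells, against 0.303 and 0.199 CPM in WT cells (log2 fold change 5.88, SE 0.24, adjusted p = 2.07e-12). Hormad1, a protein of unsynapsed chromosome axes, stood at 6.81 and 7.89 CPM in TKO cells, against 0 and 0 CPM in WT cells (at least 154-fold higher, adjusted p = 1.62e-09, uncertain with 36.3% shared 31-mers). Terb2, which ties meiotic telomeres to the nuclear envelope, stood at 1.74 and 1.93 CPM in TKO cells, against 0 and 0 CPM in WT cells (at least 38.5-fold higher, adjusted p = 9.23e-09). Tex12, another central element protein, stood at 1.71 and 2.91 CPM in TKO cells, against 0 and 0 CPM in WT cells (at least 47.5-fold higher, adjusted p = 3.16e-06). Not all members rose. Dmc1, the meiotic recombinase, was lower at 1.97 and 1.47 CPM in TKO cells, against 3.33 and 3.08 CPM in WT cells (log2 fold change -0.88, SE 0.22, adjusted p = 0.00356). Prdm9, which sets recombination hotspots, did not pass, at 8.31 and 8.04 CPM in TKO cells, against 7.27 and 6.42 CPM in WT cells (log2 fold change 0.26, SE 0.13, adjusted p = 0.133). The gene of the double-strand break enzyme, Spo11, was lower as well, and the call was lost for Spo11 when any 1 of the 4 libraries was left out (highest adjusted p 0.175).

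Germ cell specification genes, many of which are also pluripotency genes, were 13 higher, 3 lower and 1 not passing of 17 tested. Prdm1, the repressor that starts the germ cell programme, stood at 4.37 and 3.79 CPM in TKO cells, against 1.12 and 0.728 CPM in WT cells (log2 fold change 2.13, SE 0.30, adjusted p = 2.01e-05). Prdm14, its partner, stood at 1.48 and 1.54 CPM in TKO cells, against 0.121 and 0.0993 CPM in WT cells (log2 fold change 3.72, SE 0.35, adjusted p = 2.29e-07). Tfap2c, an AP-2 factor of germ cells and surface ectoderm, stood at 15.2 and 14.3 CPM in TKO cells, against 2.58 and 2.91 CPM in WT cells (log2 fold change 2.43, SE 0.14, adjusted p = 3.32e-10). On the Y chromosome, 5 of 6 listed genes were higher. Kdm5d, a histone demethylase, stood at 141 and 140.4 CPM in TKO cells, against 2.18 and 2.68 CPM in WT cells (log2 fold change 5.86, SE 0.10, adjusted p = 3.91e-17). Usp9y, a deubiquitinase, stood at 14.1 and 13.8 CPM in TKO cells, against 0.879 and 0.430 CPM in WT cells (log2 fold change 4.39, SE 0.22, adjusted p = 4.58e-11). Ddx3y, an RNA helicase, stood at 38.9 and 37.4 CPM in TKO cells, against 10.9 and 8.47 CPM in WT cells (log2 fold change 1.97, SE 0.11, adjusted p = 2.24e-10). Zfy1, a zinc finger factor, stood at 3.59 and 4.04 CPM in TKO cells, against 0 and 0 CPM in WT cells (at least 79.9-fold higher, adjusted p = 5.16e-09, uncertain with 53.9% shared 31-mers). Eif2s3y, a translation initiation factor, did not pass, at 55.5 and 54.6 CPM in TKO cells, against 52.8 and 49.6 CPM in WT cells (log2 fold change 0.11, SE 0.07, adjusted p = 0.224).

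Imprinted genes, of which each cell normally uses only the maternal or only the paternal copy, are given by class. Of the paternally expressed genes, 15 of 23 genes tested rose, 4 fell and 4 missed the threshold, with a median log2 fold change of 0.75. Of the maternally expressed genes, 4 of 17 genes tested rose, 10 fell and 3 missed the threshold, with a median log2 fold change of -0.68. Zim1, which is lower, stands in both lists. No allele could be read here, so the values are the sum of both copies.

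Plagl1, a zinc finger regulator of growth, stood at 257 and 233 CPM in TKO cells, against 3.73 and 3.51 CPM in WT cells (log2 fold change 6.08, SE 0.17, adjusted p = 8.14e-15). Nnat, neuronatin, a small membrane protein of developing brain, stood at 468 and 600.0 CPM in TKO cells, against 9.79 and 9.93 CPM in WT cells (log2 fold change 5.76, SE 0.13, adjusted p = 8.82e-16). Nap1l5, a nucleosome assembly protein gene, stood at 6.84 and 9.93 CPM in TKO cells, against 1.03 and 1.19 CPM in WT cells (log2 fold change 2.91, SE 0.24, adjusted p = 4.29e-08). Further rises were in Peg3 (log2 fold change 1.31, SE 0.13, adjusted p = 3.93e-07), Snrpn (log2 fold change 1.07, SE 0.06, adjusted p = 3.65e-10, uncertain with 34.5% shared 31-mers), Magel2 (log2 fold change 2.32, SE 0.19, adjusted p = 3.37e-08) and Impact (log2 fold change 0.76, SE 0.09, adjusted p = 4.94e-06). Mest (log2 fold change 0.36, SE 0.06, adjusted p = 0.000106, uncertain with 21.96% shared 31-mers) and Peg10 (log2 fold change 0.62, SE 0.08, adjusted p = 1.30e-05) rose less but stood among the 8 largest rises in CPM once predicted genes without a symbol of their own were left out, with means of 3716 CPM for Mest in TKO cells and 2894 CPM in WT cells. Other paternally expressed genes fell. Igf2, the fetal growth factor, stood at 24.1 and 16.5 CPM in TKO cells, against 174 and 151 CPM in WT cells (log2 fold change -2.99, SE 0.18, adjusted p = 6.52e-10, uncertain with 61.9% shared 31-mers). Dlk1, a Notch-like transmembrane protein, stood at 3.74 and 5.16 CPM in TKO cells, against 11.6 and 14.4 CPM in WT cells (log2 fold change -1.56, SE 0.17, adjusted p = 1.25e-06).

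Grb10, an adaptor that restrains insulin and growth factor receptors, stood at 27.8 and 26.6 CPM in TKO cells, against 617 and 630.5 CPM in WT cells (log2 fold change -4.52, SE 0.14, adjusted p = 6.08e-14). Cdkn1c, a cyclin-dependent kinase inhibitor, stood at 116 and 116 CPM in TKO cells, against 551 and 546 CPM in WT cells (log2 fold change -2.24, SE 0.09, adjusted p = 1.29e-12). Igf2r, the receptor that clears Igf2, stood at 64.9 and 57.2 CPM in TKO cells, against 243 and 192 CPM in WT cells (log2 fold change -1.83, SE 0.10, adjusted p = 1.77e-10). Klf14, a Kruppel-like factor, stood at 0.232 and 0.0351 CPM in TKO cells, against 1.58 and 1.29 CPM in WT cells (log2 fold change -3.31, SE 0.52, adjusted p = 6.56e-05). In each, both TKO libraries lay below both WT libraries. Ascl2, a helix-loop-helix factor of the placenta, stood at 2.78 and 2.39 CPM in TKO cells, against 0.242 and 0.397 CPM in WT cells (log2 fold change 3.01, SE 0.33, adjusted p = 1.27e-06). Grb10, annotated on chromosome 11 from 11930508 to 12038683 of GRCm38, had a log2 fold change below those of the other imprinted genes listed. Kcnk9, a potassium channel gene that is imprinted in mouse brain and is in neither list, was lower at 0.695 and 0.737 CPM in TKO cells, against 27.1 and 24.4 CPM in WT cells (log2 fold change -5.16, SE 0.21, adjusted p = 1.95e-12).

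More neural progenitor genes were lower than higher: 4 of 30 genes tested rose, 17 fell and 9 missed the threshold, with a median log2 fold change of -0.36. Pax6, a homeobox factor of progenitors, stood at 126 and 133 CPM in TKO cells, against 221 and 204 CPM in WT cells (log2 fold change -0.72, SE 0.06, adjusted p = 4.14e-08). Sox2, a factor of stem cells and progenitors, stood at 149.7 and 145 CPM in TKO cells, against 242 and 239 CPM in WT cells (log2 fold change -0.71, SE 0.06, adjusted p = 4.53e-08). Zic1, a factor of dorsal neural tissue, stood at 3.77 and 4.21 CPM in TKO cells, against 10.8 and 12.05 CPM in WT cells (log2 fold change -1.52, SE 0.18, adjusted p = 4.07e-06). Vim, vimentin, the filament of radial glia, stood at 941 and 953 CPM in TKO cells, against 1517 and 1302 CPM in WT cells (log2 fold change -0.57, SE 0.08, adjusted p = 1.52e-05). Sox1, the earliest factor particular to neuroectoderm, did not pass, at 272 and 237 CPM in TKO cells, against 269 and 267 CPM in WT cells (log2 fold change -0.07, SE 0.09, adjusted p = 0.551). Nes, nestin, an intermediate filament, was lower at 308 and 347 CPM in TKO cells, against 393 and 416 CPM in WT cells (log2 fold change -0.31, SE 0.08, adjusted p = 0.00527). The call was lost for Nes when TKO replicate 1 was left out (highest adjusted p 0.0831). Cell numbers of a type and RNA per cell cannot be told apart in bulk RNA.

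Besides Plagl1, an imprinted gene given above, Fabp7, a fatty acid binding protein of radial glia, was a member that rose, at 67.6 and 101 CPM in TKO cells, against 29.3 and 38.6 CPM in WT cells (log2 fold change 1.31, SE 0.17, adjusted p = 8.37e-06). Further members fell. Lix1, a limb and brain expressed gene, stood at 72.8 and 60.1 CPM in TKO cells, against 147 and 136 CPM in WT cells (log2 fold change -1.09, SE 0.10, adjusted p = 1.27e-07, uncertain with 16.5% shared 31-mers). Pou3f2, a POU factor, stood at 126 and 148 CPM in TKO cells, against 228 and 206 CPM in WT cells (log2 fold change -0.66, SE 0.12, adjusted p = 0.000172). Irx3, an Iroquois factor, stood at 139.6 and 151 CPM in TKO cells, against 209 and 244 CPM in WT cells (log2 fold change -0.64, SE 0.08, adjusted p = 7.12e-06). The list counted 2 higher and 19 lower without TKO replicate 2.

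**Figure D2:**
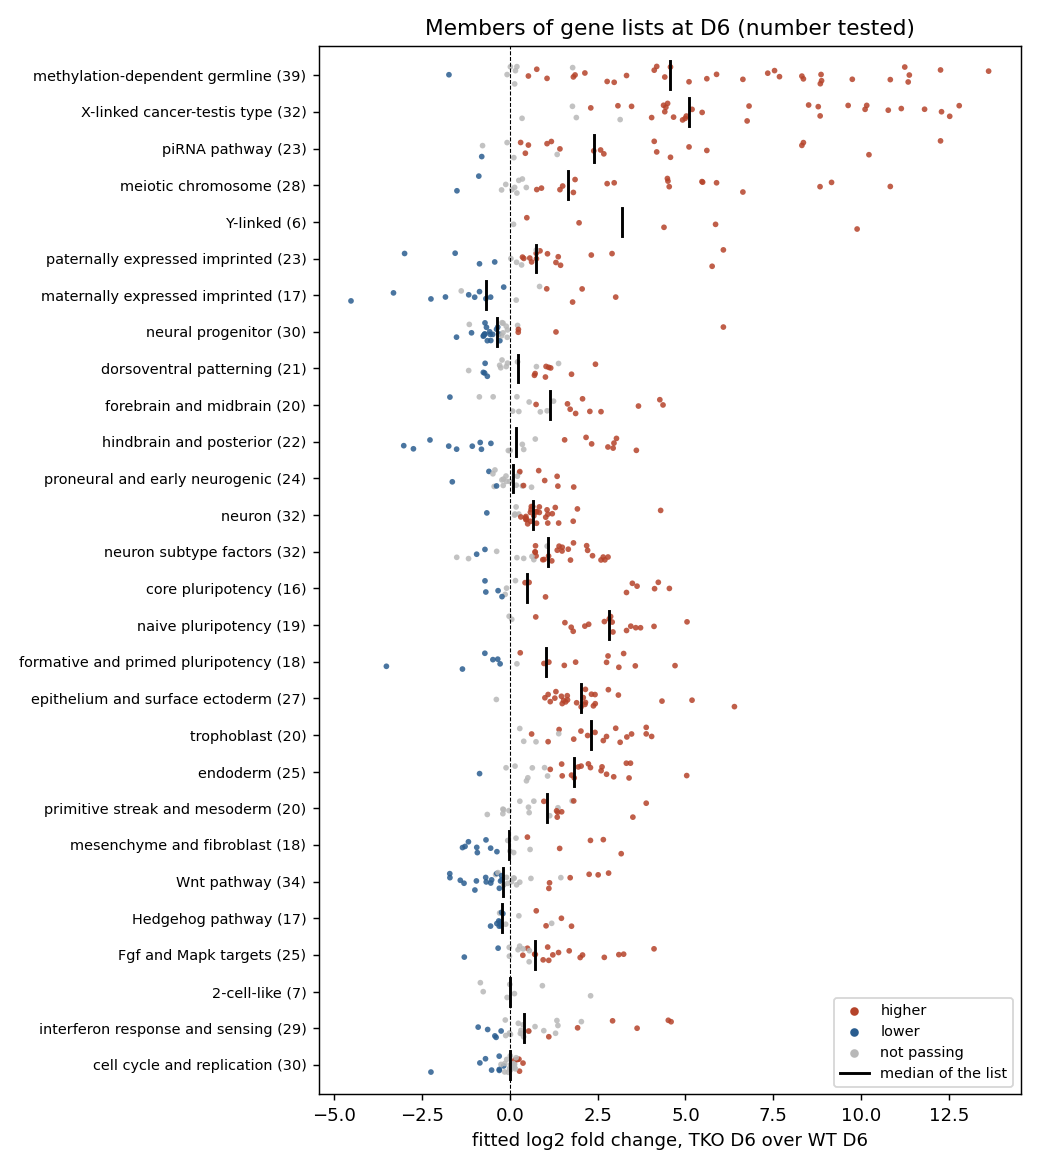
Log2 fold change of TKO over WT at D6 (horizontal axis) for each member tested of 28 gene lists (rows); points are genes and the bar marks the median. The position of a gene with no count in 1 group depends on the prior count of the fit. The germline and X-linked lists reach beyond 10 and the median of the neural progenitor list is -0.36.

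Most neuron genes rose. Of 32 tested, 27 were higher, 1 lower and 4 did not pass, with a median log2 fold change of 0.67. Nefm, the medium neurofilament, stood at 380.3 and 545 CPM in TKO cells, against 24.9 and 22.2 CPM in WT cells (log2 fold change 4.29, SE 0.15, adjusted p = 2.41e-13, uncertain with 19.07% shared 31-mers). Ina, internexin, another neurofilament subunit, stood at 202 and 252 CPM in TKO cells, against 92.2 and 80.8 CPM in WT cells (log2 fold change 1.39, SE 0.10, adjusted p = 7.68e-09, uncertain with 13.3% shared 31-mers). Dcx, doublecortin of migrating young neurons, stood at 154 and 205 CPM in TKO cells, against 98.0 and 73.9 CPM in WT cells (log2 fold change 1.06, SE 0.13, adjusted p = 2.93e-06). Map2, a dendritic microtubule protein, stood at 158 and 194 CPM in TKO cells, against 80.2 and 63.4 CPM in WT cells (log2 fold change 1.29, SE 0.11, adjusted p = 4.44e-08). Snap25, a part of the vesicle fusion machinery, stood at 18.8 and 22.8 CPM in TKO cells, against 6.30 and 5.59 CPM in WT cells (log2 fold change 1.80, SE 0.13, adjusted p = 7.51e-09). Chl1, a neural adhesion molecule, stood at 1.62 and 2.77 CPM in TKO cells, against 0.697 and 0.430 CPM in WT cells (log2 fold change 1.92, SE 0.35, adjusted p = 0.000301). Tubb3, the neuronal tubulin, stood at 452 and 596 CPM in TKO cells, against 346 and 343 CPM in WT cells (log2 fold change 0.61, SE 0.18, adjusted p = 0.0125). All 4 libraries were apart by genotype for each. The call was lost for Tubb3 when TKO replicate 2, WT replicate 1 or WT replicate 2 was left out (highest adjusted p 0.172). Nsg2, a vesicle protein of neurons, was the member that fell, at 40.9 and 42.5 CPM in TKO cells, against 66.4 and 64.9 CPM in WT cells (log2 fold change -0.65, SE 0.13, adjusted p = 0.000653).

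Transcription factors that mark neuron subtypes were 22 higher, 2 lower and 8 without a call of 32 tested, median log2 fold change 1.08. Lhx9, a LIM factor, stood at 1.04 and 1.40 CPM in TKO cells, against 0.212 and 0.165 CPM in WT cells (log2 fold change 2.66, SE 0.39, adjusted p = 3.17e-05). Tlx3, a factor of excitatory sensory relay neurons, stood at 2.43 and 2.14 CPM in TKO cells, against 0.333 and 0.364 CPM in WT cells (log2 fold change 2.71, SE 0.31, adjusted p = 2.25e-06). Lhx2, a LIM factor of forebrain and dorsal interneurons, stood at 11.4 and 11.2 CPM in TKO cells, against 1.73 and 2.02 CPM in WT cells (log2 fold change 2.60, SE 0.18, adjusted p = 4.76e-09). Lhx1, a LIM factor of several spinal classes, stood at 21.5 and 25.5 CPM in TKO cells, against 10.4 and 7.98 CPM in WT cells (log2 fold change 1.35, SE 0.14, adjusted p = 7.91e-07). Foxd3, a forkhead factor of neural crest, stem cells and some interneurons, stood at 2.58 and 1.33 CPM in TKO cells, against 0.364 and 0.199 CPM in WT cells (log2 fold change 2.80, SE 0.39, adjusted p = 1.98e-05).

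Proneural genes, which commit progenitors to become neurons, were 7 higher, 3 lower and 14 without a call of 24 tested, median log2 fold change 0.09. Nhlh2, a helix-loop-helix factor of young neurons, stood at 79.8 and 89.9 CPM in TKO cells, against 35.5 and 30.2 CPM in WT cells (log2 fold change 1.37, SE 0.10, adjusted p = 1.85e-08). Ebf1, a factor of postmitotic neurons, stood at 34.04 and 46.7 CPM in TKO cells, against 21.3 and 19.16 CPM in WT cells (log2 fold change 0.99, SE 0.14, adjusted p = 1.61e-05). Myt1, a zinc finger factor of differentiating neurons, stood at 29.3 and 36.8 CPM in TKO cells, against 19.6 and 17.7 CPM in WT cells (log2 fold change 0.82, SE 0.11, adjusted p = 1.12e-05). Neurog2, a proneural factor of progenitors, was lower at 4.81 and 5.09 CPM in TKO cells, against 17.6 and 13.2 CPM in WT cells (log2 fold change -1.64, SE 0.25, adjusted p = 5.63e-05). The list counted 4 higher and 4 lower without TKO replicate 2. Of the Notch pathway, which holds progenitors back from this step, 6 of 20 genes tested rose, 4 fell and 10 missed the threshold, with a median log2 fold change of -0.03. Hey1, a Notch target, stood at 27.1 and 32.4 CPM in TKO cells, against 10.9 and 11.7 CPM in WT cells (log2 fold change 1.39, SE 0.15, adjusted p = 8.56e-07). Hey2, its relative, stood at 1.97 and 2.00 CPM in TKO cells, against 0.576 and 0.629 CPM in WT cells (log2 fold change 1.72, SE 0.29, adjusted p = 0.000143). Jag1, a ligand, stood at 116 and 120.4 CPM in TKO cells, against 78.4 and 76.7 CPM in WT cells (log2 fold change 0.60, SE 0.07, adjusted p = 1.68e-06). Lfng, Lunatic fringe, which modifies Notch, was lower at 42.5 and 49.9 CPM in TKO cells, against 92.8 and 99.7 CPM in WT cells (log2 fold change -1.06, SE 0.10, adjusted p = 1.21e-07). Hes5, a further target, did not pass, at 66.1 and 82.2 CPM in TKO cells, against 79.0 and 90.3 CPM in WT cells (log2 fold change -0.19, SE 0.11, adjusted p = 0.189).

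Patterning genes along the head to tail axis moved in both directions. Of forebrain and midbrain genes, 10 of 20 genes tested rose, 1 fell and 9 missed the threshold, with a median log2 fold change of 1.153. Pax8, a paired factor of the midbrain-hindbrain boundary, stood at 12.3 and 14.7 CPM in TKO cells, against 0.970 and 0.397 CPM in WT cells (log2 fold change 4.27, SE 0.29, adjusted p = 3.53e-09). En2, an engrailed factor of the same region, stood at 16.1 and 19.7 CPM in TKO cells, against 1.45 and 1.36 CPM in WT cells (log2 fold change 3.66, SE 0.14, adjusted p = 1.51e-12). Six3, a factor of the anterior forebrain, stood at 4.55 and 4.53 CPM in TKO cells, against 0.970 and 0.893 CPM in WT cells (log2 fold change 2.28, SE 0.27, adjusted p = 3.46e-06). Otx2, a factor of forebrain, midbrain and formative cells, stood at 12.9 and 8.39 CPM in TKO cells, against 2.85 and 3.01 CPM in WT cells (log2 fold change 1.87, SE 0.20, adjusted p = 1.06e-06). Wnt1, the boundary signal, was lower at 0.985 and 0.877 CPM in TKO cells, against 2.67 and 3.44 CPM in WT cells (log2 fold change -1.70, SE 0.30, adjusted p = 0.000363).

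Of hindbrain and posterior genes, 8 of 22 genes tested rose, 9 fell and 5 missed the threshold, with a median log2 fold change of 0.18. Hoxb2, a homeobox gene of the anterior hindbrain segments, stood at 6.17 and 8.91 CPM in TKO cells, against 60.1 and 61.3 CPM in WT cells (log2 fold change -3.02, SE 0.13, adjusted p = 7.67e-12). Hoxa2, its paralogue, stood at 18.6 and 19.9 CPM in TKO cells, against 100.3 and 85.7 CPM in WT cells (log2 fold change -2.27, SE 0.10, adjusted p = 1.40e-11, uncertain with 13.7% shared 31-mers). Hoxb1, a further anterior Hox gene, stood at 0.174 and 0.140 CPM in TKO cells, against 0.485 and 0.596 CPM in WT cells (log2 fold change -1.74, SE 0.48, adjusted p = 0.00713). Egr2, Krox20, a zinc finger factor of hindbrain segments, stood at 0.608 and 0.246 CPM in TKO cells, against 1.91 and 4.04 CPM in WT cells (log2 fold change -2.74, SE 0.50, adjusted p = 0.000274). These were lower. Hoxb4, a Hox gene with a more posterior limit, stood at 2.75 and 2.81 CPM in TKO cells, against 0.727 and 0.496 CPM in WT cells (log2 fold change 2.17, SE 0.33, adjusted p = 5.38e-05). Hoxb8, a Hox gene of the trunk, stood at 15.2 and 18.1 CPM in TKO cells, against 2.85 and 1.46 CPM in WT cells (log2 fold change 2.94, SE 0.36, adjusted p = 5.34e-06). Hoxb9, another trunk Hox gene, stood at 0.377 and 0.456 CPM in TKO cells, against 0.0606 and 0.0993 CPM in WT cells (log2 fold change 2.33, SE 0.55, adjusted p = 0.00234). Cyp26a1, a retinoic acid degrading enzyme, stood at 7.50 and 7.93 CPM in TKO cells, against 0.939 and 1.29 CPM in WT cells (log2 fold change 2.79, SE 0.27, adjusted p = 3.21e-07). These were higher, so that within the Hoxb cluster Hoxb1, Hoxb2 and Hoxb3 (log2 fold change -1.51, SE 0.14, adjusted p = 1.44e-07) were lower, and Hoxb4, Hoxb5 (count ratio 8.70, counting interval 2.66 to 44.9, adjusted p = 0.0106), Hoxb8 and Hoxb9 higher. The call was lost for Hoxb5 when TKO replicate 2, WT replicate 1 or WT replicate 2 was left out (highest adjusted p 0.0811).

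Along the back to belly axis the list was 8 higher, 4 lower and 9 without a call of 21 tested, median log2 fold change 0.22. Foxa2, a factor of floor plate and endoderm, stood at 6.08 and 7.86 CPM in TKO cells, against 2.12 and 1.99 CPM in WT cells (log2 fold change 1.76, SE 0.19, adjusted p = 1.12e-06). Gsx1, a factor of dorsal interneuron progenitors, stood at 2.38 and 3.72 CPM in TKO cells, against 0.454 and 0.662 CPM in WT cells (log2 fold change 2.44, SE 0.35, adjusted p = 2.89e-05). Nkx2-2, a factor of the ventral tube, stood at 5.21 and 5.86 CPM in TKO cells, against 3.36 and 2.02 CPM in WT cells (log2 fold change 1.03, SE 0.25, adjusted p = 0.0034). Msx3, a dorsal factor, stood at 3.91 and 2.46 CPM in TKO cells, against 1.51 and 1.46 CPM in WT cells (log2 fold change 1.11, SE 0.27, adjusted p = 0.00288). Olig2, a factor of motor neuron and oligodendrocyte progenitors, stood at 3.71 and 2.88 CPM in TKO cells, against 1.48 and 1.46 CPM in WT cells (log2 fold change 1.16, SE 0.42, adjusted p = 0.0327). Calls were lost for Nkx2-2 when WT replicate 2 was left out (highest adjusted p 0.0638), Msx3 when TKO replicate 1 was left out (highest adjusted p 0.0798) and Olig2 when any 1 of the 4 libraries was left out (highest adjusted p 0.18). The list counted 4 higher and 3 lower without TKO replicate 1, 5 higher and 5 lower without TKO replicate 2 and 5 higher and 4 lower without WT replicate 1. Shh, the ventral signal, did not pass, at 4.78 and 5.05 CPM in TKO cells, against 7.21 and 4.77 CPM in WT cells (log2 fold change -0.29, SE 0.21, adjusted p = 0.294).

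Axon guidance genes were 11 higher, 15 lower and 8 without a call of 34 tested, median log2 fold change 0.13. Robo3, a receptor that lets axons cross the midline, stood at 199.9 and 259.9 CPM in TKO cells, against 70.9 and 57.0 CPM in WT cells (log2 fold change 1.84, SE 0.12, adjusted p = 1.66e-09). Epha3, an ephrin receptor, stood at 6.81 and 11.8 CPM in TKO cells, against 1.27 and 0.960 CPM in WT cells (log2 fold change 3.04, SE 0.29, adjusted p = 2.74e-07). Unc5b, a netrin receptor, stood at 17.9 and 14.8 CPM in TKO cells, against 4.51 and 5.23 CPM in WT cells (log2 fold change 1.75, SE 0.12, adjusted p = 3.04e-09). Epha7, an ephrin receptor, was lower at 46.4 and 39.8 CPM in TKO cells, against 131 and 131 CPM in WT cells (log2 fold change -1.60, SE 0.09, adjusted p = 2.32e-10). Plxnd1, a semaphorin receptor, was lower at 15.1 and 15.2 CPM in TKO cells, against 40.0 and 45.2 CPM in WT cells (log2 fold change -1.495, SE 0.11, adjusted p = 1.31e-08). Synapse and ion channel genes were 14 higher, 3 lower and 15 without a call of 32 tested, median log2 fold change 0.47. Gad1, which makes the transmitter GABA, stood at 5.45 and 5.82 CPM in TKO cells, against 0.909 and 0.364 CPM in WT cells (log2 fold change 3.11, SE 0.34, adjusted p = 9.96e-07). Slc17a6, a vesicular glutamate transporter, stood at 3.45 and 4.597 CPM in TKO cells, against 0.576 and 0.927 CPM in WT cells (log2 fold change 2.42, SE 0.30, adjusted p = 8.04e-06). Cacna2d1, a calcium channel subunit, stood at 28.7 and 35.4 CPM in TKO cells, against 5.85 and 4.80 CPM in WT cells (log2 fold change 2.58, SE 0.15, adjusted p = 3.94e-10). Gad2, the other GABA enzyme, stood at 3.19 and 3.47 CPM in TKO cells, against 0.757 and 0.331 CPM in WT cells (log2 fold change 2.58, SE 0.38, adjusted p = 2.96e-05).

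Of the clustered protocadherins, surface proteins whose isoforms give neurons an identity, 16 of 31 genes tested rose, 4 fell and 11 missed the threshold, with a median log2 fold change of 0.51. Pcdhga12, of the gamma cluster, stood at 14.3 and 12.8 CPM in TKO cells, against 3.06 and 3.04 CPM in WT cells (log2 fold change 2.15, SE 0.16, adjusted p = 1.08e-08, uncertain with 33.1% shared 31-mers). Pcdhac2, of the alpha cluster, stood at 4.26 and 3.33 CPM in TKO cells, against 1.151 and 1.42 CPM in WT cells (log2 fold change 1.57, SE 0.29, adjusted p = 0.000294, uncertain with 48.4% shared 31-mers). Pcdhb5, of the beta cluster, stood at 2.55 and 3.30 CPM in TKO cells, against 0.697 and 0.529 CPM in WT cells (log2 fold change 2.24, SE 0.37, adjusted p = 0.000116, uncertain with 17.2% shared 31-mers). The isoforms of a cluster share exons and all of these values are uncertain. The list counted 7 higher and 2 lower without TKO replicate 2, 12 higher and 2 lower without WT replicate 1 and 9 higher and 4 lower without WT replicate 2. Of delta protocadherins and classic cadherins, 5 of 21 genes tested rose, 8 fell and 8 missed the threshold, with a median log2 fold change of -0.26. Pcdh17, a delta protocadherin, was lower at 2.55 and 3.54 CPM in TKO cells, against 55.8 and 59.8 CPM in WT cells (log2 fold change -4.26, SE 0.18, adjusted p = 2.63e-12). Cdh11, a cadherin of mesenchyme and brain, was lower at 7.97 and 10.0 CPM in TKO cells, against 38.8 and 33.98 CPM in WT cells (log2 fold change -2.02, SE 0.13, adjusted p = 1.31e-09). Cdh2, N-cadherin, the cadherin of neural tissue, was lower at 426 and 411 CPM in TKO cells, against 711 and 659 CPM in WT cells (log2 fold change -0.71, SE 0.05, adjusted p = 7.29e-09). Cdh1, E-cadherin, the cadherin of stem cells and epithelia, was higher at 105 and 83.2 CPM in TKO cells, against 30.3 and 30.2 CPM in WT cells (log2 fold change 1.64, SE 0.11, adjusted p = 1.66e-09). Cdh5, the cadherin of vessel lining, was higher at 9.85 and 11.1 CPM in TKO cells, against 0.273 and 0.430 CPM in WT cells (log2 fold change 4.89, SE 0.21, adjusted p = 6.02e-12).

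Pluripotency genes were counted by state. Of naive genes, 17 of 19 genes tested rose, 0 fell and 2 missed the threshold, with a median log2 fold change of 2.83. Nr0b1, a nuclear receptor partner of Pou5f1, stood at 3.62 and 2.84 CPM in TKO cells, against 0.121 and 0.0662 CPM in WT cells (log2 fold change 5.04, SE 0.53, adjusted p = 7.39e-07). Fgf4, the growth factor that drives exit from the naive state, stood at 7.01 and 5.54 CPM in TKO cells, against 0.485 and 0.232 CPM in WT cells (log2 fold change 4.10, SE 0.31, adjusted p = 1.16e-08). Zfp42, Rex1, a naive marker, stood at 23.8 and 17.8 CPM in TKO cells, against 2.36 and 1.79 CPM in WT cells (log2 fold change 3.32, SE 0.29, adjusted p = 9.44e-08, uncertain with 13.4% shared 31-mers). Esrrb, an orphan nuclear receptor, stood at 22.8 and 14.1 CPM in TKO cells, against 2.24 and 1.13 CPM in WT cells (log2 fold change 3.44, SE 0.29, adjusted p = 3.85e-08). Tdh, threonine dehydrogenase, a metabolic enzyme of mouse stem cells, stood at 24.7 and 19.5 CPM in TKO cells, against 2.64 and 0.993 CPM in WT cells (log2 fold change 3.59, SE 0.22, adjusted p = 1.01e-09, uncertain with 17.1% shared 31-mers). TKO libraries lay above WT libraries for each.

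Of core pluripotency genes, 9 of 16 genes tested rose, 4 fell and 3 missed the threshold, with a median log2 fold change of 0.49. Pou5f1, Oct4, the central factor of pluripotency, stood at 55.4 and 44.2 CPM in TKO cells, against 5.76 and 3.04 CPM in WT cells (log2 fold change 3.49, SE 0.29, adjusted p = 3.85e-08). Nanog, a homeobox factor of pluripotency, stood at 29.6 and 22.4 CPM in TKO cells, against 3.33 and 1.82 CPM in WT cells (log2 fold change 3.32, SE 0.26, adjusted p = 1.73e-08, uncertain with 10.6% shared 31-mers). Tdgf1, Cripto, the Nodal coreceptor, stood at 12.8 and 9.30 CPM in TKO cells, against 0.636 and 0.298 CPM in WT cells (log2 fold change 4.54, SE 0.44, adjusted p = 2.74e-07, uncertain with 12.6% shared 31-mers). L1td1, an RNA-binding protein derived from a LINE-1 element, stood at 30.4 and 28.2 CPM in TKO cells, against 2.03 and 1.06 CPM in WT cells (log2 fold change 4.23, SE 0.26, adjusted p = 7.24e-10). Utf1, a chromatin factor of stem cells, stood at 17.4 and 12.5 CPM in TKO cells, against 1.33 and 1.09 CPM in WT cells (log2 fold change 3.62, SE 0.31, adjusted p = 7.19e-08). Lin28a, an RNA-binding protein that blocks let-7 maturation, was lower at 501 and 372 CPM in TKO cells, against 702 and 701 CPM in WT cells (log2 fold change -0.68, SE 0.10, adjusted p = 2.83e-05). The core list counted 9 higher and 2 lower without TKO replicate 2 and 9 higher and 2 lower without WT replicate 2. Formative and primed genes were 11 higher, 6 lower and 1 without a call of 18 tested, median log2 fold change 1.04. The 6 lower members included Dnmt3a and Dnmt3b, given above, the only members lower by at least 2-fold. Rises were in Fgf5 (log2 fold change 3.10, SE 0.36, adjusted p = 2.45e-06), Lefty2 (log2 fold change 4.70, SE 0.45, adjusted p = 2.70e-07, uncertain with 18.4% shared 31-mers), Lefty1 (log2 fold change 3.57, SE 0.54, adjusted p = 4.55e-05, uncertain with 25.7% shared 31-mers) and Nodal (log2 fold change 2.75, SE 0.42, adjusted p = 4.68e-05).

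Genes of epithelium and surface ectoderm rose nearly as a whole: 26 of 27 genes tested rose, 0 fell and 1 missed the threshold, with a median log2 fold change of 2.03 (1.90 with bounds). Epcam, an adhesion molecule of stem cells and epithelia, stood at 30.2 and 22.04 CPM in TKO cells, against 6.03 and 5.76 CPM in WT cells (log2 fold change 2.15, SE 0.14, adjusted p = 1.71e-09). Krt8, a keratin of simple epithelia, stood at 152 and 145 CPM in TKO cells, against 54.0 and 51.5 CPM in WT cells (log2 fold change 1.49, SE 0.07, adjusted p = 1.18e-11, uncertain with 32.3% shared 31-mers). Grhl2, a grainyhead factor of epithelial identity, stood at 9.44 and 8.597 CPM in TKO cells, against 2.00 and 1.59 CPM in WT cells (log2 fold change 2.32, SE 0.14, adjusted p = 5.96e-10). Esrp1, an epithelial splicing regulator, stood at 15.6 and 11.6 CPM in TKO cells, against 2.48 and 2.58 CPM in WT cells (log2 fold change 2.43, SE 0.19, adjusted p = 1.77e-08). Cldn7, a tight junction protein, stood at 11.4 and 8.81 CPM in TKO cells, against 1.97 and 1.92 CPM in WT cells (log2 fold change 2.38, SE 0.18, adjusted p = 1.58e-08). Ovol2, a zinc finger factor of surface ectoderm, stood at 0.898 and 1.05 CPM in TKO cells, against 0.151 and 0.0662 CPM in WT cells (log2 fold change 3.09, SE 0.48, adjusted p = 5.99e-05). The member that did not pass is Trp63, the master gene of stratified epithelium, at 1.71 and 1.09 CPM in TKO cells, against 2.24 and 1.42 CPM in WT cells.

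Endoderm genes were 17 higher, 1 lower and 7 without a call of 25 tested, median log2 fold change 1.83. Sox17, a factor of definitive and primitive endoderm, stood at 9.07 and 11.3 CPM in TKO cells, against 1.73 and 0.860 CPM in WT cells (log2 fold change 2.96, SE 0.32, adjusted p = 1.12e-06). Gata6, a factor of primitive endoderm, stood at 9.73 and 11.3 CPM in TKO cells, against 1.33 and 0.629 CPM in WT cells (log2 fold change 3.39, SE 0.33, adjusted p = 2.90e-07). Gata4, its relative, stood at 14.9 and 20.2 CPM in TKO cells, against 6.76 and 5.79 CPM in WT cells (log2 fold change 1.48, SE 0.27, adjusted p = 0.000321). Afp, alpha-fetoprotein of the yolk sac, stood at 1.10 and 1.23 CPM in TKO cells, against 0.0606 and 0 CPM in WT cells (count ratio 36.6, counting interval 9.78 to 308, adjusted p = 0.000237). Ttr, transthyretin, stood at 1.51 and 2.04 CPM in TKO cells, against 0.273 and 0.0662 CPM in WT cells (log2 fold change 3.32, SE 0.61, adjusted p = 0.000376). Lrp2, megalin, which neural tissue also makes, was lower at 437 and 282 CPM in TKO cells, against 696 and 609 CPM in WT cells (log2 fold change -0.86, SE 0.17, adjusted p = 0.000658).

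Trophoblast genes were 16 higher, 0 lower and 4 without a call of 20 tested, median log2 fold change 2.32. Sct, secretin, stood at 5.68 and 6.11 CPM in TKO cells, against 0.394 and 0.397 CPM in WT cells (log2 fold change 3.88, SE 0.23, adjusted p = 6.79e-10). Hand1, a helix-loop-helix factor of trophoblast and heart, stood at 1.85 and 2.00 CPM in TKO cells, against 0.0909 and 0.165 CPM in WT cells (log2 fold change 3.88, SE 0.46, adjusted p = 3.02e-06). Plac1, a placental surface protein gene, stood at 7.07 and 8.07 CPM in TKO cells, against 0.848 and 0.860 CPM in WT cells (log2 fold change 3.14, SE 0.32, adjusted p = 5.97e-07). Cdx2, which starts the trophoblast lineage, did not pass, at 0.521 and 0.386 CPM in TKO cells, against 0.424 and 0.265 CPM in WT cells (log2 fold change 0.40, SE 0.41, adjusted p = 0.48). Primitive streak and mesoderm genes were 8 higher, 0 lower and 12 without a call of 20 tested, median log2 fold change 1.05, and T, Brachyury, the factor of the streak, did not pass, at 1.59 and 0.842 CPM in TKO cells, against 1.03 and 0.993 CPM in WT cells (log2 fold change 0.29, SE 0.43, adjusted p = 0.637). Tbx6, a factor of presomitic mesoderm, did not pass, at 1.48 and 0.597 CPM in TKO cells, against 1.55 and 0.860 CPM in WT cells (log2 fold change -0.20, SE 0.47, adjusted p = 0.773).

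Fixed markers of other cell types were summed in each library to see what the cultures held. Neural progenitor markers summed to 1494 and 1595 CPM in TKO cells, against 1933 and 1939 CPM in WT cells. Neuron markers summed to 1103 and 1413 CPM in TKO cells, against 754 and 684 CPM in WT cells. Pluripotent markers summed to 182 and 136 CPM in TKO cells, against 20.4 and 11.4 CPM in WT cells. The progenitor sum was the largest of the 11 types in every library. Epithelial markers summed to 412 and 364 CPM in TKO cells, against 146 and 140.0 CPM in WT cells. Germ cell markers summed to 272 and 337 CPM in TKO cells, against 1.91 and 2.38 CPM in WT cells. Dazl alone gave 262 of the mean 305 CPM in TKO cells. All 4 germ cell markers also belong to the germline list above, so their sum repeats that result. The markers of the other types likewise belong to the gene lists counted here, so their sums are not separate evidence. Endoderm markers summed to 42.4 and 53.9 CPM in TKO cells, against 12.3 and 9.33 CPM in WT cells. For these types the sums did not overlap between genotypes, and every marker of the neuron (7 of 7), pluripotent (6 of 6), epithelial (5 of 5), germ cell (4 of 4) and endoderm (6 of 6) sets was higher, against 1 of 8 progenitor markers. Members of the longer lists that were lower, such as Lin28a, Lrp2 and Nsg2 given above, are not in these sets. Trophoblast markers summed to 9.33 and 9.30 CPM in TKO cells, against 2.94 and 2.65 CPM in WT cells. Streak and mesoderm markers summed to 4.40 and 2.28 CPM in TKO cells, against 2.94 and 2.28 CPM in WT cells, with Mesp1 at 0 in WT cells. Neural crest markers summed to 19.5 and 17.6 CPM in TKO cells, against 19.4 and 17.2 CPM in WT cells. Mesenchyme markers summed to 28.3 and 28.9 CPM in TKO cells, against 25.3 and 28.3 CPM in WT cells. Astrocyte and oligodendrocyte markers summed to 32.9 and 30.6 CPM in TKO cells, against 42.4 and 42.3 CPM in WT cells. The part of these other cell types in any of the differences was not tested.

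**Figure D3:**
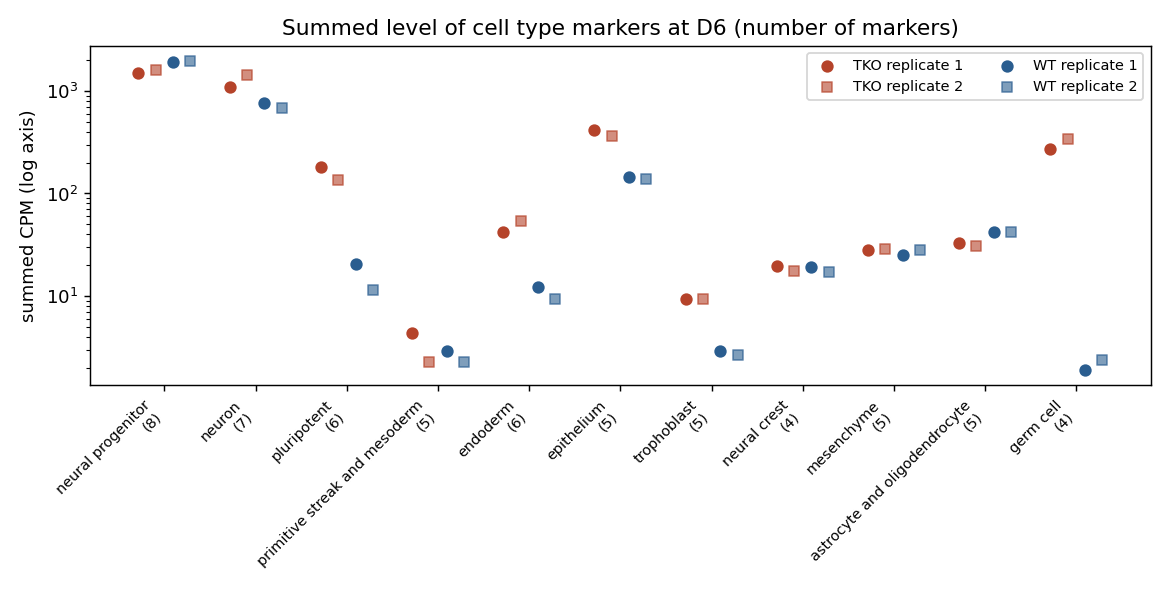
Summed CPM of the fixed markers of 11 cell types (log scale) in each of the 2 TKO and 2 WT libraries at D6. Pluripotent, epithelial and germ cell sums are higher in both TKO libraries than in both WT libraries, and the neural progenitor sum is lower.

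Basement membrane genes moved in both directions: 8 of 19 genes tested rose, 5 fell and 6 missed the threshold, with a median log2 fold change of 0.11. Col4a1, a chain of type IV collagen, stood at 1189.8 and 1329 CPM in TKO cells, against 230.0 and 182 CPM in WT cells (log2 fold change 2.61, SE 0.19, adjusted p = 9.26e-09). Col4a2, its partner chain, stood at 786 and 788 CPM in TKO cells, against 235 and 197 CPM in WT cells (log2 fold change 1.87, SE 0.17, adjusted p = 1.01e-07). Lamb1, a laminin chain, stood at 149 and 188 CPM in TKO cells, against 47.1 and 60.7 CPM in WT cells (log2 fold change 1.64, SE 0.32, adjusted p = 0.000485). Col4a5, a chain of the other collagen IV network, was lower at 17.7 and 13.4 CPM in TKO cells, against 40.8 and 44.5 CPM in WT cells (log2 fold change -1.45, SE 0.14, adjusted p = 1.91e-07). Fn1, fibronectin, was lower at 214 and 163 CPM in TKO cells, against 462 and 451 CPM in WT cells (log2 fold change -1.27, SE 0.11, adjusted p = 5.75e-08). The cells grew on added laminin in both genotypes. Of mesenchyme and fibroblast genes, 5 of 18 genes tested rose, 8 fell and 5 missed the threshold, with a median log2 fold change of -0.03; Col5a2, a fibrillar collagen chain, stood at 42.2 and 31.8 CPM in TKO cells, against 6.57 and 5.10 CPM in WT cells (log2 fold change 2.66, SE 0.14, adjusted p = 1.60e-10). Postn, periostin of connective tissue, stood at 2.17 and 3.89 CPM in TKO cells, against 0.364 and 0.298 CPM in WT cells (log2 fold change 3.17, SE 0.48, adjusted p = 7.90e-05). Tagln, a smooth muscle actin-binding protein, was lower at 114 and 72.5 CPM in TKO cells, against 239 and 236 CPM in WT cells (log2 fold change -1.35, SE 0.15, adjusted p = 1.54e-06).

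Glial genes were 5 higher, 2 lower and 8 without a call of 15 tested, median log2 fold change 0.55, led by Nfib (log2 fold change 2.86, SE 0.28, adjusted p = 2.62e-07) and Pdgfra (log2 fold change 2.30, SE 0.26, adjusted p = 1.89e-06); Gfap, the astrocyte filament, did not pass, at 0.203 and 0.0702 CPM in TKO cells, against 0.0303 and 0.165 CPM in WT cells (log2 fold change 0.55, SE 0.84, adjusted p = 0.64). Aqp4, the astrocyte water channel, was lower at 0.145 and 1.09 CPM in TKO cells, against 4.27 and 5.82 CPM in WT cells, and the call was lost for Aqp4 when TKO replicate 1 or WT replicate 2 was left out (highest adjusted p 0.122). Neural crest genes were 9 higher, 3 lower and 4 without a call of 16 tested, median log2 fold change 0.72; Sox10, its defining factor, did not pass, at 0.174 and 0.211 CPM in TKO cells, against 0.151 and 0.0331 CPM in WT cells (log2 fold change 0.99, SE 0.64, adjusted p = 0.25). Tfap2a, an AP-2 factor of crest and surface ectoderm, stood at 4.32 and 3.86 CPM in TKO cells, against 1.51 and 1.09 CPM in WT cells (log2 fold change 1.64, SE 0.20, adjusted p = 5.18e-06). Twist1, a factor of cranial mesenchyme, stood at 16.4 and 16.9 CPM in TKO cells, against 5.70 and 6.78 CPM in WT cells (log2 fold change 1.42, SE 0.12, adjusted p = 7.78e-08). Neural crest genes counted 5 higher and 3 lower without TKO replicate 2 and 5 higher and 3 lower without WT replicate 1. Glial genes counted 3 higher and 1 lower without TKO replicate 1, 3 higher and 1 lower without TKO replicate 2, 3 higher and 1 lower without WT replicate 1 and 3 higher and 0 lower without WT replicate 2.

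Signalling genes were counted by pathway. Of Fgf ligands, receptors and Mapk targets, 16 of 25 genes tested rose, 2 fell and 7 missed the threshold, with a median log2 fold change of 0.73. Etv4, an Ets factor induced by Fgf, stood at 5.30 and 5.23 CPM in TKO cells, against 0.454 and 0.662 CPM in WT cells (log2 fold change 3.24, SE 0.51, adjusted p = 6.97e-05). Etv5, its relative, stood at 67.6 and 47.7 CPM in TKO cells, against 10.0 and 7.88 CPM in WT cells (log2 fold change 2.69, SE 0.20, adjusted p = 1.17e-08, uncertain with 30.3% shared 31-mers). Spry4, a feedback inhibitor, stood at 5.85 and 5.47 CPM in TKO cells, against 1.79 and 1.72 CPM in WT cells (log2 fold change 1.69, SE 0.17, adjusted p = 3.79e-07). Fgfr3, a receptor of neural progenitors, was lower at 101 and 111 CPM in TKO cells, against 257 and 262 CPM in WT cells (log2 fold change -1.30, SE 0.09, adjusted p = 1.99e-09). Dusp6, a phosphatase induced by Mapk, did not pass, at 59.2 and 42.3 CPM in TKO cells, against 53.7 and 32.6 CPM in WT cells (log2 fold change 0.23, SE 0.17, adjusted p = 0.294).

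Of Wnt genes, 6 of 34 genes tested rose, 15 fell and 13 missed the threshold, with a median log2 fold change of -0.20. Among the ligands, receptors and modulators that were lower, Wnt4, a ligand, stood at 2.78 and 2.67 CPM in TKO cells, against 5.09 and 5.46 CPM in WT cells (log2 fold change -0.95, SE 0.18, adjusted p = 0.000318). Fzd10, a receptor, stood at 41.4 and 37.3 CPM in TKO cells, against 101 and 93.2 CPM in WT cells (log2 fold change -1.30, SE 0.09, adjusted p = 7.41e-09). Axin2, a feedback target, stood at 36.9 and 32.1 CPM in TKO cells, against 55.1 and 56.1 CPM in WT cells (log2 fold change -0.69, SE 0.08, adjusted p = 1.46e-06). Sfrp1, a secreted inhibitor, stood at 313 and 296 CPM in TKO cells, against 620.3 and 592 CPM in WT cells (log2 fold change -0.99, SE 0.06, adjusted p = 1.56e-09). Among those higher, Notum, an enzyme that inactivates Wnt ligands, stood at 3.10 and 2.70 CPM in TKO cells, against 0.333 and 0.496 CPM in WT cells (log2 fold change 2.81, SE 0.28, adjusted p = 3.60e-07). Dkk1, a secreted inhibitor, stood at 1.22 and 1.86 CPM in TKO cells, against 0.364 and 0.265 CPM in WT cells (log2 fold change 2.26, SE 0.39, adjusted p = 0.000153). Rspo1, a secreted enhancer, stood at 2.81 and 1.96 CPM in TKO cells, against 0.545 and 0.927 CPM in WT cells (log2 fold change 1.72, SE 0.29, adjusted p = 0.000121).

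Of Bmp and Nodal genes, 13 of 31 genes tested rose, 4 fell and 14 missed the threshold, with a median log2 fold change of 0.08; Nodal, Lefty1, Lefty2 and Tdgf1, given above, were higher. Id1, a Bmp target, stood at 27.6 and 26.5 CPM in TKO cells, against 10.1 and 11.6 CPM in WT cells (log2 fold change 1.32, SE 0.10, adjusted p = 8.21e-09). Bmp7, a ligand, was lower at 19.09 and 15.3 CPM in TKO cells, against 36.2 and 35.5 CPM in WT cells (log2 fold change -1.06, SE 0.15, adjusted p = 2.34e-05). Id4, an inhibitor of helix-loop-helix factors in neural progenitors, was lower at 44.99 and 49.9 CPM in TKO cells, against 124 and 98.4 CPM in WT cells (log2 fold change -1.23, SE 0.10, adjusted p = 1.78e-08). Hedgehog genes were 4 higher, 9 lower and 4 without a call of 17 tested, median log2 fold change -0.24, with Sufu (log2 fold change -0.55, SE 0.08, adjusted p = 3.25e-05) lower. The Hedgehog list counted 4 higher and 5 lower without TKO replicate 1, 3 higher and 3 lower without TKO replicate 2 and 2 higher and 5 lower without WT replicate 2. Retinoic acid genes were 9 higher, 4 lower and 6 without a call of 19 tested, median log2 fold change 0.39. Cyp26b1, another enzyme that breaks down retinoic acid, stood at 230.1 and 332 CPM in TKO cells, against 63.3 and 113 CPM in WT cells (log2 fold change 1.67, SE 0.20, adjusted p = 2.76e-06). Rdh10, an enzyme of its synthesis, stood at 13.9 and 11.7 CPM in TKO cells, against 7.76 and 8.57 CPM in WT cells (log2 fold change 0.66, SE 0.13, adjusted p = 0.000454). Crabp1, a binding protein, was lower at 541 and 637 CPM in TKO cells, against 819 and 869 CPM in WT cells (log2 fold change -0.52, SE 0.09, adjusted p = 0.000118).

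Of interferon response genes, 7 of 29 genes tested rose, 5 fell and 17 missed the threshold, with a median log2 fold change of 0.39. Over all genes tested, 20.9% were higher and 20.3% lower, so the counts of this list lie close to the background. The members named next are rises and genes without a call, and the 5 that fell are not named. Mx1, an antiviral GTPase, stood at 30.5 and 30.2 CPM in TKO cells, against 1.51 and 1.13 CPM in WT cells (log2 fold change 4.51, SE 0.17, adjusted p = 8.58e-13). Ifitm3, a membrane protein that blocks viral entry and also marks germ cells, stood at 48.0 and 38.9 CPM in TKO cells, against 12.03 and 10.8 CPM in WT cells (log2 fold change 1.93, SE 0.11, adjusted p = 3.32e-10, uncertain with 20.5% shared 31-mers). Rsad2, viperin, stood at 0.985 and 1.05 CPM in TKO cells, against 0.121 and 0.0331 CPM in WT cells (log2 fold change 3.62, SE 0.54, adjusted p = 4.92e-05). Isg15, a ubiquitin-like antiviral protein, did not pass, at 0.579 and 0.491 CPM in TKO cells, against 0.212 and 0.199 CPM in WT cells (log2 fold change 1.37, SE 0.64, adjusted p = 0.101). Irf7, the factor that amplifies the response, did not pass, at 0.319 and 0.316 CPM in TKO cells, against 0.151 and 0.0993 CPM in WT cells (log2 fold change 1.30, SE 0.68, adjusted p = 0.14). Major histocompatibility class I genes were 2 higher, 2 lower and 11 without a call of 15 tested, median log2 fold change 0.01. p53 targets and apoptosis genes were 9 higher, 1 lower and 15 without a call of 25 tested, median log2 fold change 0.13; Cdkn2a, a tumour suppressor locus, stood at 61.9 and 59.6 CPM in TKO cells, against 11.2 and 13.3 CPM in WT cells (log2 fold change 2.31, SE 0.10, adjusted p = 4.53e-12). Trp73, a relative of p53, stood at 4.23 and 3.404 CPM in TKO cells, against 0.394 and 0.298 CPM in WT cells (log2 fold change 3.45, SE 0.27, adjusted p = 1.96e-08). Pmaip1, Noxa, which promotes apoptosis, stood at 13.0 and 13.6 CPM in TKO cells, against 7.51 and 7.71 CPM in WT cells (log2 fold change 0.80, SE 0.15, adjusted p = 0.000454). Stress response genes were 10 higher, 0 lower and 15 without a call of 25 tested, median log2 fold change 0.48, among them Xbp1 (log2 fold change 0.71, SE 0.11, adjusted p = 4.65e-05) and Creld2 (log2 fold change 0.64, SE 0.10, adjusted p = 4.09e-05).

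Cell cycle and replication genes were 5 higher, 8 lower and 17 without a call of 30 tested, median log2 fold change 0.01. Ccnd2, cyclin D2, stood at 566 and 569 CPM in TKO cells, against 987 and 1062 CPM in WT cells (log2 fold change -0.85, SE 0.10, adjusted p = 2.35e-06). Ccnd3, cyclin D3, stood at 123.3 and 115 CPM in TKO cells, against 200.0 and 185 CPM in WT cells (log2 fold change -0.69, SE 0.06, adjusted p = 1.71e-07). Mcm2, a part of the replicative helicase, did not pass, at 293 and 302 CPM in TKO cells, against 274 and 314 CPM in WT cells (log2 fold change 0.01, SE 0.06, adjusted p = 0.883). Pcna, the replication clamp, did not pass, at 239 and 261 CPM in TKO cells, against 223 and 272 CPM in WT cells (log2 fold change 0.01, SE 0.07, adjusted p = 0.898). Genes of glycolysis and hypoxia came to 7 higher, 2 lower and 15 without a call of 24 tested, median log2 fold change 0.26. Mitochondrially encoded genes came to 6 higher, 0 lower and 7 without a call of 13 tested, median log2 fold change 0.32. Polycomb genes came to 6 higher, 6 lower and 14 without a call of 26 tested, median log2 fold change -0.03. Genes of retroelement silencing besides DNA methylation came to 3 higher, 2 lower and 15 without a call of 20 tested, median log2 fold change -0.04. Pdk1, a kinase that limits pyruvate oxidation, stood at 25.96 and 22.9 CPM in TKO cells, against 9.94 and 9.66 CPM in WT cells (log2 fold change 1.32, SE 0.15, adjusted p = 2.14e-06). Bmi1, a subunit of the ubiquitin ligase Polycomb complex, stood at 131 and 149.6 CPM in TKO cells, against 75.3 and 74.3 CPM in WT cells (log2 fold change 0.91, SE 0.14, adjusted p = 3.70e-05, uncertain with 28.2% shared 31-mers). Cbx7, a chromodomain subunit of the same complexes, was lower at 211 and 188 CPM in TKO cells, against 287 and 257 CPM in WT cells (log2 fold change -0.45, SE 0.06, adjusted p = 2.09e-05). Cell cycle genes counted 3 higher and 7 lower without TKO replicate 1, 2 higher and 8 lower without TKO replicate 2, 2 higher and 12 lower without WT replicate 1 and 10 higher and 7 lower without WT replicate 2. Glycolysis genes counted 4 higher and 2 lower without TKO replicate 1 and 3 higher and 2 lower without WT replicate 1. Mitochondrial genes counted 1 higher and 0 lower without TKO replicate 2 and 3 higher and 0 lower without WT replicate 2. Genes of retroelement silencing counted 1 higher and 2 lower without TKO replicate 1, 3 higher and 4 lower without WT replicate 1 and 1 higher and 2 lower without WT replicate 2. Of 7 genes of the 2-cell stage embryo tested, 0 passed with edgeR, 0 had an unadjusted p under 0.05, and 0 passed with DESeq2. Of these 7, 6 are uncertain and 3 held no more than 3 counts in all in each group. The list could thus show little of a change.

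The largest rises in CPM were in 4 genes that share sequence. Slc38a6, annotated as an amino acid transporter, stood at 11925 and 12305 CPM in TKO cells, against 232 and 164 CPM in WT cells (log2 fold change 5.93, SE 0.14, adjusted p = 8.45e-16, uncertain with 39.2% shared 31-mers). Noct, nocturnin, stood at 11694 and 11788 CPM in TKO cells, against 260.4 and 187 CPM in WT cells (log2 fold change 5.71, SE 0.13, adjusted p = 4.52e-16, uncertain with 34.2% shared 31-mers). D10Wsu102e, annotated on chromosome 10, stood at 9471 and 9409 CPM in TKO cells, against 450.2 and 437 CPM in WT cells (log2 fold change 4.41, SE 0.06, adjusted p = 8.61e-19, uncertain with 12.3% shared 31-mers). Rab3gap1, a subunit of a regulator of Rab3, stood at 3012 and 3253 CPM in TKO cells, against 60.6 and 55.2 CPM in WT cells (log2 fold change 5.76, SE 0.07, adjusted p = 7.53e-19, uncertain with 10.1% shared 31-mers). Most counts in TKO cells sat in 1 transcript of each: Slc38a6-208, Noct-202, D10Wsu102e-201 and Rab3gap1-205 held 99.9%, 94.2%, 100% and 98.7% of their gene's counts in TKO replicate 1. In WT replicate 1 these shares were 92.7%, 88.4%, 100% and 39.4%. Noct-204 also held more, at 23358 and 20496 estimated counts in TKO cells, against 881 and 557 in WT cells. Slc38a6-208 and Noct-202 share 2452 of their 31-mers, Noct-202 and D10Wsu102e-201 1474, and Slc38a6-208 and D10Wsu102e-201 1314. A further 758 are shared by Noct-202 and Rab3gap1-205, 705 by Slc38a6-208 and Rab3gap1-205, and 316 by D10Wsu102e-201 and Rab3gap1-205. Rab3gap1-201, the transcript that led in WT cells, held 1252 and 957 estimated counts in TKO cells, against 1169 and 1063 in WT cells. In a count chosen after these values were seen, 27 genes tested, the 4 genes above among them, held at least 50 of the 3276 31-mers that occur in 2 or more of these transcripts, and 23 of the 27, again with those 4, were higher and 0 lower (median log2 fold change 3.87). Over all genes tested, 20.9% were higher. The 31-mers come from transcripts picked for their rise, and quantification divides shared reads among these genes. A high count was thus favoured in advance, and the 27 genes are not independent. What these reads come from was not tested.

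Among the largest falls in CPM were Vim and Ccnd2, given above, and Nedd4, Scd2 and Igdcc3. Igdcc3, an adhesion molecule of the embryonic neural tube, stood at 476 and 554 CPM in TKO cells, against 948 and 949.6 CPM in WT cells (log2 fold change -0.88, SE 0.10, adjusted p = 2.40e-06). Scd2, a fatty acid desaturase of brain, stood at 874 and 969 CPM in TKO cells, against 1332 and 1649 CPM in WT cells (log2 fold change -0.69, SE 0.14, adjusted p = 0.000659). Nedd4, a ubiquitin ligase, stood at 1872 and 1774 CPM in TKO cells, against 2627 and 2578 CPM in WT cells (log2 fold change -0.51, SE 0.05, adjusted p = 1.94e-07). Other genes had low log2 fold changes. Pdgfd, a growth factor, stood at 0.290 and 0.140 CPM in TKO cells, against 5.79 and 4.43 CPM in WT cells (log2 fold change -4.51, SE 0.45, adjusted p = 3.77e-07). St8sia4, a polysialic acid synthase of neural tissue, stood at 1.13 and 1.05 CPM in TKO cells, against 8.76 and 10.4 CPM in WT cells (log2 fold change -3.12, SE 0.21, adjusted p = 2.90e-09). Thbs2, a thrombospondin, stood at 1.22 and 1.12 CPM in TKO cells, against 7.09 and 6.82 CPM in WT cells (log2 fold change -2.56, SE 0.19, adjusted p = 7.77e-09). Pou3f4, a POU factor of the neural tube, stood at 0.782 and 1.54 CPM in TKO cells, against 8.70 and 7.78 CPM in WT cells (log2 fold change -2.85, SE 0.23, adjusted p = 3.48e-08). Both TKO libraries lay below both WT libraries for each. The largest falls and lowest log2 fold changes were taken only from genes with such groups, so this was fixed in advance.

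The D6 difference was then set against those of the neighbouring days, which rest on libraries of their own. At D0 39.3% of the genes tested passed between TKO and WT cells, 19.4% higher and 19.9% lower. At D2 35.3% of the genes tested passed between TKO and WT cells, 18.4% higher and 16.9% lower. At D4 28.3% of the genes tested passed between TKO and WT cells, 15.1% higher and 13.2% lower. At D8 67.5% of the genes tested passed between TKO and WT cells, 35.8% higher and 31.8% lower. At D4, 1651 of the genes higher at D6 were also higher (42.5% of those at D6, 58.9% of those at D4), and 1393 of the genes lower were also lower (36.9% and 56.7%). At D8, 2454 were also higher (63.2% of those at D6, 37.0% of those at D8) and 2234 also lower (59.2% and 37.9%), while 680 of the genes higher at D6 were lower at D8 and 672 of the genes lower at D6 were higher. On all 5 days, 540 genes were higher and 357 lower. Of the genes called at D6, 1410 of those higher (36.3%) and 1378 of those lower (36.5%) had not been called the same way at D0, D2 or D4.

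The difference between days was tested directly as an interaction, the D6 log2 fold change minus that of the other day, which is called here a difference of differences. Between D6 and D4, 3172 genes passed (17.1%: 8.54% above and 8.55% below). Of the genes higher at D6, 1300 had a D6 log2 fold change above that at D4 and 77 had one below it. Of those lower at D6, 1077 had one below that at D4 and 23 had one above it. These genes were chosen by their D6 difference, which also enters the interaction, so uneven counts are favoured in advance. The counts do not require a call, or the same direction, at D4. Between D6 and D8, 9258 genes passed (49.9%: 24.4% above and 25.5% below). Of the genes higher at D6, 1354 had a D6 log2 fold change above that at D8 and 802 had one below it. Of those lower at D6, 1260 had one below that at D8 and 1014 had one above it. The choice by the D6 difference applies here too. These counts do not require the same direction at D8. There, 680 of the genes higher at D6 were lower, and 672 of those lower at D6 were higher.

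The differences of Dazl and Mov10l1 were larger at D6 than at D4. Both genes belong to the germline lists. Dazl stood at 106 ± 12.3 CPM in TKO cells and 0.662 ± 0.0265 CPM in WT cells at D4, at 262 ± 42.9 CPM in TKO cells and 0.0909 ± 0.129 CPM in WT cells at D6 and at 111 ± 2.45 CPM in TKO cells and 0.159 ± 0.0974 CPM in WT cells at D8 (SD, n = 2 each; D6 against D4, difference of differences 4.06 log2, SE 0.75, adjusted p = 0.00103). Mov10l1 stood at 26.5 ± 2.41 CPM in TKO cells and 4.18 ± 0.464 CPM in WT cells at D4 and at 36.5 ± 3.33 CPM in TKO cells and 0.106 ± 0.150 CPM in WT cells at D6 (difference of differences 5.65 log2, SE 0.49, adjusted p = 4.67e-07). Plagl1 stood at 215 ± 4.05 CPM in TKO cells and 2.16 ± 0.842 CPM in WT cells at D4, and its D6 difference did not pass against that at D4 (difference of differences -0.55 log2, SE 0.27, adjusted p = 0.192). Grb10 stood at 254.9 ± 12.8 CPM in TKO cells and 936 ± 44.2 CPM in WT cells at D4 and at 110.0 ± 14.6 CPM in TKO cells and 394 ± 10.4 CPM in WT cells at D8, so that its fall at D6 was larger than on either day (D6 minus D4, difference of differences -2.64 log2, SE 0.18, adjusted p = 3.39e-08; D6 minus D8, difference of differences -2.68 log2, SE 0.18, adjusted p = 3.32e-09).

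The neuron list changed direction between D6 and D8. It held 13 higher and 4 lower at D4, 27 and 1 at D6, and 1 and 31 at D8, and in 32 of 32 the D6 difference lay above that at D8 in the interaction test, where 24.4% of all genes did. Nefm stood at 463 ± 116 CPM in TKO cells and 23.6 ± 1.89 CPM in WT cells at D6 and at 223 ± 5.15 CPM in TKO cells and 109 ± 3.99 CPM in WT cells at D8 (difference of differences 3.26 log2, SE 0.19, adjusted p = 8.14e-10). Tubb3 stood at 314 ± 1.30 CPM in TKO cells and 1287 ± 16.5 CPM in WT cells at D8 (difference of differences 2.64 log2, SE 0.26, adjusted p = 2e-07). Dcx stood at 125 ± 0.154 CPM in TKO cells and 718 ± 7.88 CPM in WT cells at D8 (difference of differences 3.58 log2, SE 0.18, adjusted p = 2.16e-10). Neuron subtype factors held 11 higher and 5 lower at D4, 22 and 2 at D6, and 4 and 19 at D8, and clustered protocadherins 2 higher and 0 lower at D4, 16 and 4 at D6, and 3 and 22 at D8.

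Neural progenitor genes held 9 higher and 13 lower at D4, 4 and 17 at D6, and 2 and 27 at D8. Pax6 stood at 41.2 ± 0.497 CPM in TKO cells and 146 ± 5.503 CPM in WT cells at D8, a larger fall than at D6 (difference of differences 1.10 log2, SE 0.09, adjusted p = 1.44e-08). Sox1 stood at 121 ± 7.65 CPM in TKO cells and 179.6 ± 5.49 CPM in WT cells at D8 (difference of differences 0.49 log2, SE 0.13, adjusted p = 0.00389). The Pou5f1 difference was larger at D6 than at D4 and smaller than at D8: Pou5f1 stood at 93.9 ± 18.03 CPM in TKO cells and 77.7 ± 5.17 CPM in WT cells at D4 and at 526 ± 37.5 CPM in TKO cells and 12.5 ± 7.13 CPM in WT cells at D8 (D6 minus D4, difference of differences 3.21 log2, SE 0.36, adjusted p = 8.52e-06; D6 minus D8, difference of differences -1.90 log2, SE 0.40, adjusted p = 0.000667). Naive genes held 6 higher and 0 lower at D4, 17 and 0 at D6, and 16 and 3 at D8. Grhl2 stood at 6.40 ± 0.736 CPM in TKO cells and 2.97 ± 0.0936 CPM in WT cells at D4 and at 46.5 ± 2.24 CPM in TKO cells and 2.88 ± 0.208 CPM in WT cells at D8 (D6 minus D4, difference of differences 1.21 log2, SE 0.20, adjusted p = 0.000326; D6 minus D8, difference of differences -1.69 log2, SE 0.20, adjusted p = 1.45e-06).

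**Figure D4:**
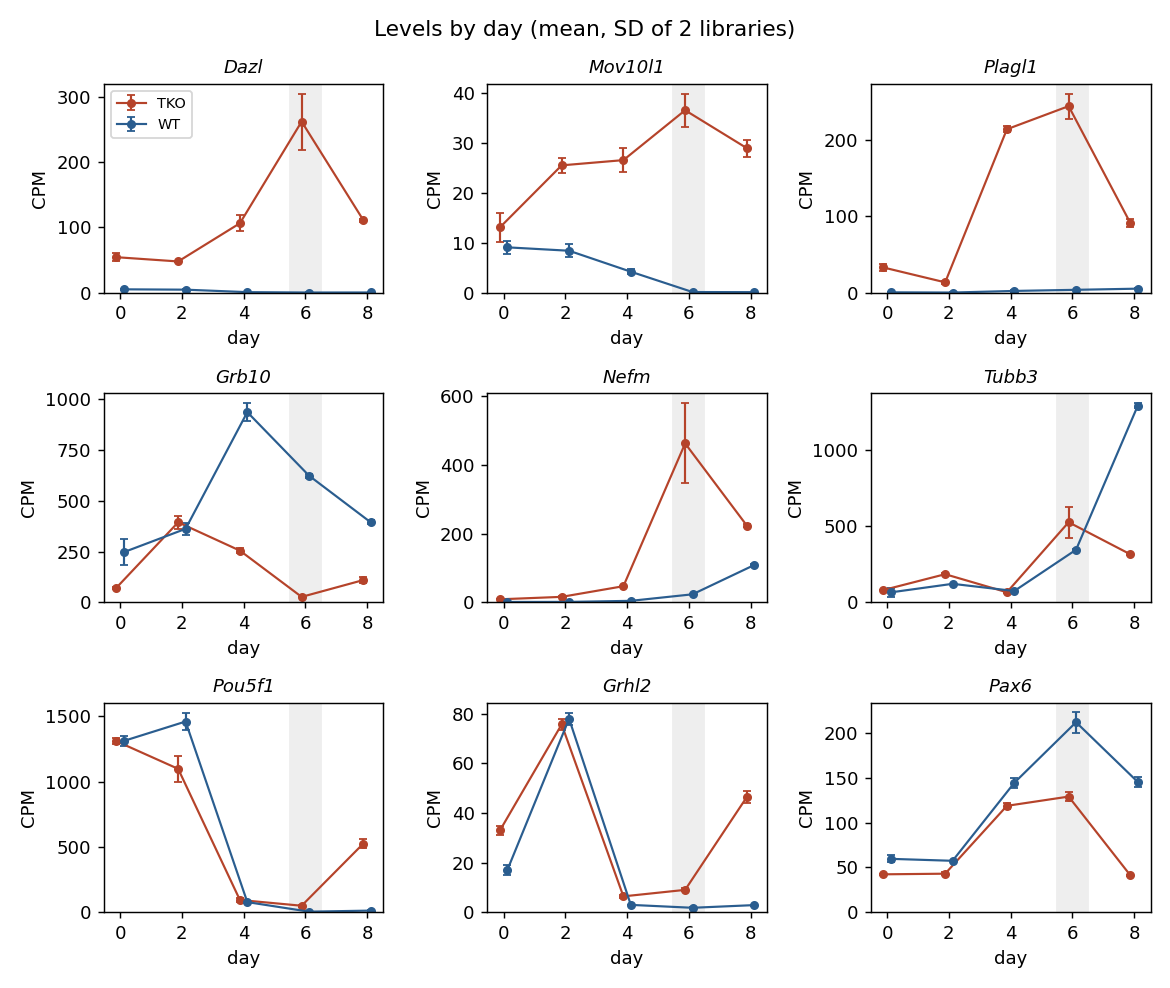
Mean CPM (vertical axis, linear, with a range of its own in each panel) of 9 genes by day from D0 to D8 (horizontal axis) in TKO and WT cells, with error bars of 1 SD over 2 libraries. Nefm, Tubb3 and Dazl are higher in TKO at D6, and Tubb3 is lower in TKO at D8.

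**Figure D5:**
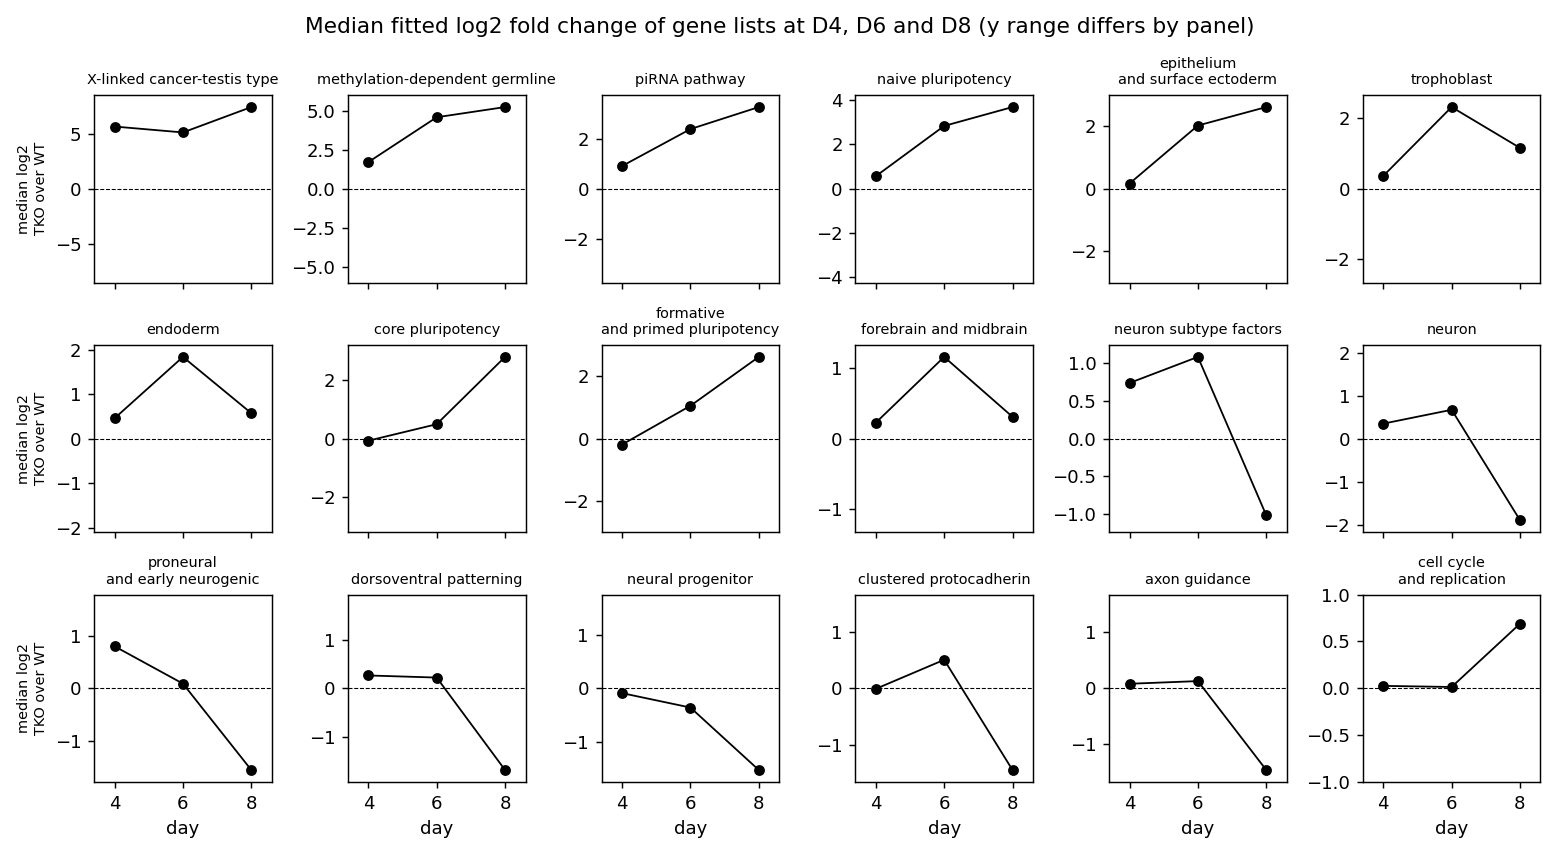
Median log2 fold change of TKO over WT (vertical axis, with a range of its own in each panel) for 18 gene lists at D4, D6 and D8 (horizontal axis). The median of the neuron list is 0.35 at D4, 0.67 at D6 and -1.90 at D8, and that of the naive list 0.56, 2.83 and 3.68.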

How the data were processed

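The 20 libraries hold polyadenylated RNA of ES-E14TG2a cells (TruSeq Stranded mRNA, per the labels' protocols), 2 biological replicates per genotype and day. The deposited estimated counts are reads assigned to each of 119414 transcripts by kallisto, per the submitters' processing notes, which also name Trim Galore 0.6.2 and GRCm38; the kallisto version, strand setting and transcript set are not given in the sources used here. The deposited TPM values, per the file headers, were made from the same counts and transcript lengths, and served here for the length-scaled alternative and per-length means.

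Transcripts were matched to GENCODE genes of GRCm38 (116728 matched; the others held 0.943% to 1.10% of a library's counts and were left out). Sums of estimated counts over each gene's transcripts were rounded to whole numbers, kept by filterByExpr on the 10 groups, scaled by TMM and fitted with edgeR 4.0.16 in R 4.3.3 (glmQLFit, glmQLFTest, common biological coefficient of variation 0.0689, 10 residual degrees of freedom). The fit was tested on simulated data. Contrasts were TKO minus WT at D6, and the D6 difference minus that at D4 and at D8. Interactions, lists and named genes use this fit, and p-values are adjusted over all genes.

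Genes named are a fixed set of markers, then, among genes past the threshold with non-overlapping groups and 1 group mean of 5 CPM or more, predicted genes (Gm and Rik names) left out, the 12 highest and 12 lowest log2 fold changes and the 8 largest rises and falls in CPM, up to 4 members per list, and 3 each way per contrast between days; further list members were named after their values were seen, and some genes are not reported here. The 47 lists name 999 genes, of which 959 were tested. The lists and named genes were chosen with earlier results of these data known. Alternatives included RLE scaling, no filter, DESeq2 1.42.0, a replicate block, other sets of libraries or genes, and each library left out. Replicate numbers were not taken to pair the samples: 7 of 45 pairs of groups had deviations that correlated above 0.1, and the D6 groups had the highest (0.211, median of all pairs 0.0294). Replicates of a group differed by more than counting noise (chi-square per degree of freedom 7.98 in TKO D6 and 10.4 in WT D6). Counting bounds, at 3 counts per group, and 95% intervals cover counting error only.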

Additional observations from a re-analysis of the deposited data

Results flagged for a closer look

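The TKO minus WT difference at D6 differed from that at D4 in 3172 genes and from that at D8 in 9258 genes by the interaction test of edgeR. The genes below have the largest such differences of differences in log2; where a group held no counts, the fitted size depends on the prior count.

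Above the D4 difference stood Rpl10l (8.32, SE 0.74, adjusted p = 1.14e-06), Tex101 (7.87, SE 1.28, adjusted p = 0.000385) and Otud6a (7.30, SE 1.22, adjusted p = 0.000469), all with no count in WT cells at D6. Below it stood Kcnk9 (-3.75, SE 0.49, adjusted p = 4.13e-05), Ppp1r17 (-4.32, SE 0.69, adjusted p = 0.000331) and Tll1 (-3.67, SE 0.44, adjusted p = 1.55e-05). Ppp1r17 stood at 1.02 ± 0.0475 CPM in TKO cells and 0.0306 ± 0.0433 CPM in WT cells at D4 and at 10.7 ± 2.64 CPM in TKO cells and 7.10 ± 0.452 CPM in WT cells at D6. The D6 call was lost for Ppp1r17 when TKO replicate 2, WT replicate 1 or WT replicate 2 was left out (highest adjusted p 0.383). Kcnk9 stood at 0.292 ± 0.00799 CPM in TKO cells and 0.786 ± 0.275 CPM in WT cells at D4 and at 0.716 ± 0.0294 CPM in TKO cells and 25.7 ± 1.89 CPM in WT cells at D6. Tll1 stood at 1.54 ± 0.537 CPM in TKO cells and 0.692 ± 0.0683 CPM in WT cells at D4 and at 1.42 ± 0.324 CPM in TKO cells and 8.17 ± 0.788 CPM in WT cells at D6 (SD, n = 2 each).

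Above the D8 difference stood Slitrk1 (6.40, SE 1.07, adjusted p = 0.0002), Nkx1-1 (5.71, SE 0.47, adjusted p = 2.67e-08) and Pmfbp1 (5.68, SE 0.42, adjusted p = 7.86e-09). Slitrk1, a synapse organiser, stood at 0.148 ± 0.160 CPM in TKO cells and 0.0620 ± 0.0409 CPM in WT cells at D6, where it did not pass, and at 0.179 ± 0.00636 CPM in TKO cells and 6.47 ± 0.217 CPM in WT cells at D8. Nkx1-1 stood at 1.78 ± 0.510 CPM in TKO cells and 0.238 ± 0.0372 CPM in WT cells at D6 and at 1.21 ± 0.0259 CPM in TKO cells and 8.64 ± 0.530 CPM in WT cells at D8. Pmfbp1 stood at 2.98 ± 1.14 CPM in TKO cells and 0.310 ± 0.204 CPM in WT cells at D6 and at 3.19 ± 0.0432 CPM in TKO cells and 17.6 ± 0.333 CPM in WT cells at D8. Below the D8 difference stood Xlr5a (-6.76, SE 1.153, adjusted p = 0.000186), Xlr5b (-6.40, SE 1.55, adjusted p = 0.00306) and Tnfsf11 (-4.42, SE 0.62, adjusted p = 1.24e-05). Xlr5a and Xlr5b are uncertain, with 89.6% and 94.5% of shared 31-mers. Tnfsf11 stood at 0.492 ± 0.000902 CPM in TKO cells and 0.288 ± 0.107 CPM in WT cells at D6, where it did not pass, and at 6.61 ± 1.42 CPM in TKO cells and 0.173 ± 0.117 CPM in WT cells at D8. The causes of these differences were not tested.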

How the results depend on the processing

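At D6, 7654 genes passed, 7640 with RLE scaling, 7715 without the low-count filter, 6870 with DESeq2, 6151 with the D6 libraries alone, 6224 with length-scaled TPM counts and 8245 without the D0 libraries. With a change of at least 2-fold required, 2694 genes passed at D6, 1391 in the contrast with D4 and 3841 in the contrast with D8; at an adjusted p under 0.01, 1768 passed in the contrast with D4. With any 1 library left out, 6046 to 6384 genes passed at D6, 2185 to 2699 in the contrast with D4 and 8255 to 8766 in that with D8, in fits with fewer samples. Of the 205 named genes tested, 200 passed and 0 reversed under any alternative run. Of these 200, 18 lost the call without 1 of the 4 D6 libraries. Of the 626 genes called at D6 that are named or belong to a list, 156 lost the call without 1 of these libraries. Of the 47 lists, 12 had a count that moved by over 1.5 times without 1 library and 16 under any alternative; 0 of 94 counts did so under RLE scaling. TMM put the median log2 fold change at -0.003 and RLE at 0.

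The replicate numbers were not taken to pair the samples, and with a replicate block 7596 genes passed at D6, 3179 in the contrast with D4 and 9218 in that with D8. Depth limits low genes: no fold is given where both groups are at or under 3 counts.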
